A study of Arabidopsis thaliana with 24 samples.

Results

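The genes described here are 43 loci of *Arabidopsis thaliana* that make, break down, perceive or answer the hormone abscisic acid (ABA), out of 33681 genes in the deposited table. They were taken by locus from a list and not by their values: 5 biosynthesis genes, 4 catabolism genes, 9 genes of the PYR/PYL receptors, 9 clade A type 2C protein phosphatases (PP2Cs), 3 SnRK2 kinases, 5 bZIP transcription factors, *ABI3* and *ABI4*, and 6 response genes. RNA-seq was performed on 24 libraries from whole 14-day-old seedlings grown in short days on plates with sucrose, 3 libraries for each of 8 genotypes, all in the Col-0 background and with no ABA treatment stated. The genotypes were the triple mutants *brm-1 bcl7a bcl7b* and *brm-3 bcl7a bcl7b*, the *brm-1* null and *brm-3* hypomorphic mutants, the *bcl7a bcl7b* double mutant, the *bcl7b* and *bcl7a* single mutants, and WT. Each mutation was a T-DNA insertion carried by the whole plant from the seed on, with 1 allele for *BCL7A* and 1 for *BCL7B*. BRM is the ATPase of a SWI/SNF chromatin remodelling complex, and BCL7A and BCL7B are accessory subunits of that complex. The study also recovered BCL7A and BCL7B with SYD, MINU1 and MINU2, the ATPases of other SWI/SNF complexes. The comparisons ask what the loss of each subunit does to these genes, and whether the loss of BCL7A and BCL7B still acts where BRM is weakened or absent.

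ABA accumulates in drying leaves and ripening seeds, closes stomata and keeps seeds from germinating. It binds receptors of the PYR/PYL family, which then hold back clade A PP2Cs. SnRK2 kinases that these phosphatases kept inactive are freed, and they phosphorylate bZIP factors (ABFs and ABI5) that bind ABA-responsive elements, promoter sites with an ACGT core. Several PP2C genes are themselves ABA targets, so that the pathway limits itself. *ABI5* acts mainly in seeds and at germination, and it is a known target of BRM.

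The deposited values were normalized counts. They summed to 16.6 to 22.1 M in the 15 libraries of the *brm*, *bcl7a bcl7b* and triple mutants and to 29.9 to 40.9 M in the 9 libraries of the single mutants and WT (M, mega), with 7.87% to 13.7% of the sum in the 10 highest genes of each of the 15 and 26.8% to 33.6% in the 9. Each library was estimated to hold 19.1 to 27.7 M fragments. A difference between any of the 5 genotypes with low sums and WT cannot be told apart from this division, which does not touch comparisons among the 5. Rescaling all libraries to the same total moved the median gene of those 5 against WT up by 0.80 to 0.96 on the log2 scale, and that of *bcl7b* by 0.25. Replicates 1 and 3 of *bcl7a bcl7b* differed by less than the sampling noise (mean squared difference 0.14 times its counting variance, against 12.9 to 146 in the 23 other pairs of replicates) and were averaged and treated as 1. The double mutant therefore had n = 2 and each other genotype n = 3. WT replicate 1 listed 16191 genes at 0, more than any other library. *BCL7B* was at 0 in every library of *bcl7b*, *bcl7a bcl7b* and *brm-1 bcl7a bcl7b* and at 0, 0 and 23.97 in *brm-3 bcl7a bcl7b*. *BRM* had 31.2 to 44.8 in *brm-1* and 17.9 to 43.6 in *brm-1 bcl7a bcl7b*, against 111 to 349 in WT. *BCL7A* held 0, 3.82 and 5.05 in *brm-1 bcl7a bcl7b* against 85.8 to 107 in *brm-1*, and 0 in all 3 *brm-3 bcl7a bcl7b* libraries against 53.0 to 91.6 in *brm-3*, as the labels of the triple mutants say. It was low in WT (0, 18.1 and 30.1). The *bcl7a* single mutant (0, 0 and 4.42) could therefore not be checked. *BRM* held 135 to 173 in *brm-3* and 115 to 163 in *brm-3 bcl7a bcl7b*, within the WT range. The *brm-3* allele could thus not be checked by the level of *BRM* either. All 6 leaf mesophyll markers were detected in every library, as were all 6 guard cell markers. The summed leaf markers were 342842 to 1383420 in the 5 genotypes, against 3140010 to 5102270 in the single mutants and WT. *CAB1* weighed most in this sum (median 687718 over all libraries, highest 4497390), with *RBCS1A* next (median 177792, highest 377496). Root and root hair markers summed to 253 to 1274 in the 5 genotypes and 873 to 2107 in the single mutants, against 1585 to 1893 in WT. In whole seedlings, fewer cells of a type and less RNA per cell cannot be told apart.

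A gene was called at an adjusted p under 0.05 (limma, Benjamini-Hochberg over 21596 genes) and a change above 0.6 on the log2(normalized count + 1) scale, and changes are given on that scale as the value ± its standard error. Of the 43 ABA genes, 39 reached a count of 10 in at least 3 libraries and were tested. *AHG1*, *HAI3*, *ABI3* and *ABI4* did not. *EM1* passed on 4 libraries, 2 of *brm-1 bcl7a bcl7b* and the near-identical pair of *bcl7a bcl7b*. It entered only through genotypes in which it was high. Its calls in *brm-1 bcl7a bcl7b*, against WT and against *brm-1*, are in the counts but are not given as results. *EM6* passed on 8 libraries, all of *brm-1 bcl7a bcl7b*, *brm-3* or *bcl7a bcl7b*, and was listed at 0 in WT. It too entered only through genotypes in which it was high. Against WT it was called higher in those 3 genotypes. All its calls are in the counts and shares but are not given as results. Against WT, 15 higher and 5 lower (background 26.9% and 18.3%, 45.2% in all) were called in *brm-1 bcl7a bcl7b*, where the background is the share of all genes tested that was called higher and lower. The counts were 16 higher and 7 lower (background 30.8% and 22.8%, 53.5% in all) in *brm-3 bcl7a bcl7b* and 14 higher and 8 lower (background 28.9% and 19.2%, 48.1% in all) in *brm-1*. They were 15 higher and 5 lower (background 23.5% and 16.5%, 40% in all) in *brm-3* and 11 higher and 3 lower (background 11.9% and 10.2%, 22.1% in all) in *bcl7a bcl7b*. As shares of the 39 genes these counts were 51.3%, 59.0%, 56.4%, 51.3% and 35.9%, against backgrounds of 45.2%, 53.5%, 48.1%, 40% and 22.1%. In both triple mutants and *brm-1* the share was near the background, and no test of the list was run. The 14 calls in *bcl7a bcl7b* were 7 (17.9%, background 11.5%) without the averaged sample, 21 (53.8%, background 14.8%) without replicate 2 and 1 (2.56%, background 3.59%) with the compared genotypes alone in the fit. The count of calls in *bcl7a bcl7b* thus depended on the samples used, and the 1 call left in that last fit was *EM6*. In *bcl7b*, *ABI1* and *PP2CA* were called, 2 higher and 0 lower (background 1.5% and 0.574%, 2.08% in all). In *bcl7a* limma called 0 genes, 0 higher and 0 lower (background 0.301% and 0.0509%, 0.352% in all).

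The median change of the 39 genes was 0.74 against 0.29 over all genes tested in *brm-1 bcl7a bcl7b*, 0.52 against 0.30 in *brm-3 bcl7a bcl7b* and 0.26 against 0.35 in *brm-1*. It was 1 against 0.27 in *brm-3*, 0.67 against 0.19 in *bcl7a bcl7b*, 0.43 against 0.02 in *bcl7b* and 0.21 against 0.03 in *bcl7a*. All these contrasts share the WT libraries. With the compared genotypes alone in the fit, each comparison with WT has its own estimate of the spread. In that fit *AAO3*, *CYP707A3*, *HAB2*, *ABF4* and *RD29B* lost their calls in *brm-1 bcl7a bcl7b* (adjusted p of 0.0523 to 0.133). *AAO3*, *CYP707A2*, *CYP707A3*, *ABF4* and *ABI5* lost them in *brm-3 bcl7a bcl7b* (adjusted p of 0.0733 to 0.181). So did *AAO3*, *CYP707A3* and *ABI5* in *brm-1* (adjusted p of 0.0635 to 0.218). In *brm-3* these were *CYP707A1*, *PYL2*, *ABF1* and *ABF3* (adjusted p of 0.054 to 0.113). In *bcl7a bcl7b* every call was lost but that of *EM6*, which is not given as a result. With libraries rescaled to the same total, 23 higher and 3 lower were called in *brm-1 bcl7a bcl7b* (background after rescaling 54.1% and 6.91%), 23 higher and 4 lower in *brm-3 bcl7a bcl7b* (55.8% and 9.22%), 18 higher and 5 lower in *brm-1* (51.7% and 7.13%), 26 higher and 3 lower in *brm-3* (50.5% and 4.15%) and 25 higher and 1 lower in *bcl7a bcl7b* (50.2% and 1.69%). The balance of directions over all genes moved with this scaling. That of the ABA genes moved the same way. Counted by libraries without a test, genes whose 3 libraries all lay above or all below the 3 WT libraries numbered 18 and 10 in *brm-1 bcl7a bcl7b* (background 29.9% and 21.3%), 17 and 7 in *brm-3 bcl7a bcl7b* (background 30.3% and 23.4%), 16 and 10 in *brm-1* (background 32.6% and 23.4%) and 20 and 7 in *brm-3* (background 27.5% and 21.5%). They numbered 10 and 3 in *bcl7a bcl7b* (background 22.6% and 18.8%), 11 and 4 in *bcl7b* (background 8.14% and 8%) and 3 and 2 in *bcl7a* (background 5.33% and 4.33%). Of the 39 genes, 22 were called higher against WT in at least 1 mutant and never lower, *EM1* and *EM6* among them, and 9 lower and never higher. *PYL6*, *ABI1* and *RD22* were called in both directions, and *NCED9*, *CYP707A4*, *ABI2*, *HAI2* and *SNRK2.2* in no mutant.

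**Figure D1:**
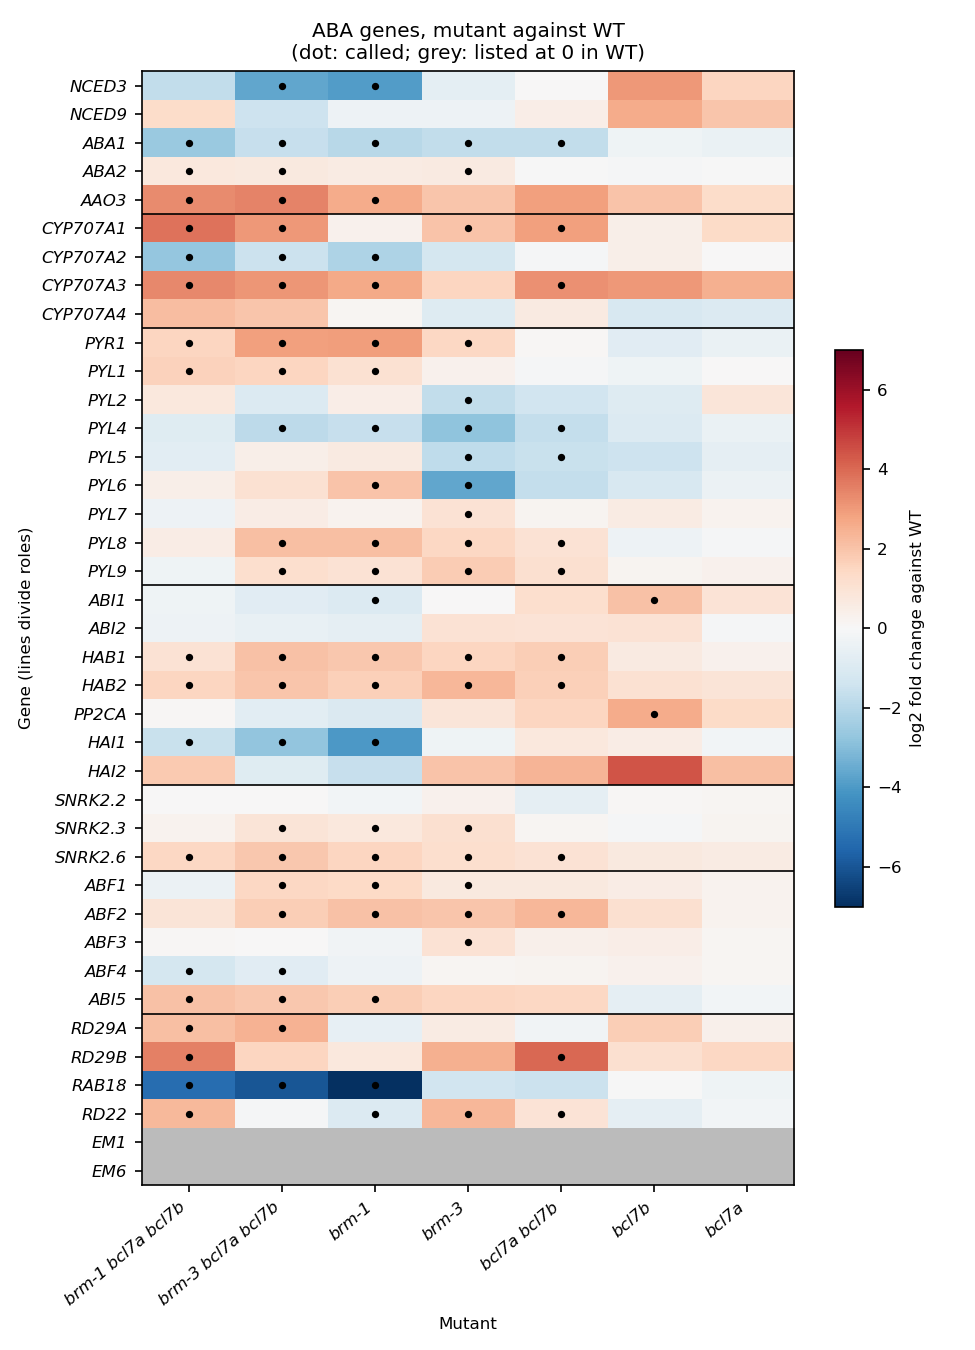
Log2 fold change against WT (colour) of the 39 tested ABA genes, in rows divided by role, in the 7 mutants (columns). Dots mark called genes and grey rows are *EM1* and *EM6*, which were listed at 0 in WT, and *ABA1* is called lower in 5 columns while *HAB1* and *HAB2* are called higher in the same 5.

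Among the biosynthesis genes, *ABA1* was lower in each of the 5 genotypes and *NCED3* was much lower in *brm-1* and *brm-3 bcl7a bcl7b*, while *AAO3* was higher in 3 genotypes. *NCED3* encodes the dioxygenase that cleaves epoxycarotenoids, the step that limits ABA synthesis in drying leaves. *NCED3* (AT3G14440) had normalized counts of 63.7, 97.4 and 113 in *brm-1 bcl7a bcl7b* against 23.7, 17.4 and 15.6 in *brm-1*, and 15.0, 41.5 and 20.0 in *brm-3 bcl7a bcl7b* against 159.9, 158 and 255 in *brm-3*. Its counts were 3418, 25.1 and 3438 in *bcl7a bcl7b*, 1883, 2422 and 3260.0 in *bcl7b*, 979, 359 and 1790.3 in *bcl7a*, and 198, 276 and 475 in WT. Every library of both triple mutants and of *brm-1* lay below every WT library, every *bcl7b* library lay above, and *bcl7a bcl7b* lay on both sides. *NCED3* fell in *brm-1* (-3.92 ± 0.97, adjusted p = 0.0019) and in *brm-3 bcl7a bcl7b* (-3.61 ± 0.97, adjusted p = 0.00319), and was not called in *brm-1 bcl7a bcl7b* (-1.73 ± 0.97, adjusted p = 0.149). *ABA1* encodes zeaxanthin epoxidase, which makes the epoxycarotenoid precursors. *ABA1* (AT5G67030) had normalized counts of 293, 272 and 294 in *brm-1 bcl7a bcl7b* against 575, 469 and 329 in *brm-1*, and 531, 581 and 537 in *brm-3 bcl7a bcl7b* against 582, 499 and 453 in *brm-3*. Its counts were 693, 379 and 692 in *bcl7a bcl7b*, 1470.3, 1337 and 1399 in *bcl7b*, 1393, 995 and 1395 in *bcl7a*, and 1951, 1555 and 1657 in WT. All 21 mutant libraries were below the lowest WT library. *ABA1* fell in *brm-1 bcl7a bcl7b* by 2.58, in *brm-3 bcl7a bcl7b* by 1.64, in *brm-1* by 1.94, in *brm-3* by 1.75 and in *bcl7a bcl7b* by 1.74, with adjusted p between 1.42e-09 and 1.79e-05.

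The last steps are carried out by ABA2, a dehydrogenase that forms abscisic aldehyde, and by the aldehyde oxidase AAO3. *ABA2* (AT1G52340) had normalized counts of 708, 1130.0 and 956 in *brm-1 bcl7a bcl7b* against 803, 890.2 and 741 in *brm-1*, and 932, 819 and 872 in *brm-3 bcl7a bcl7b* against 907, 767 and 876 in *brm-3*. Its counts were 665, 452 and 648 in *bcl7a bcl7b*, 486, 555 and 509 in *bcl7b*, 533, 599.8 and 503 in *bcl7a*, and 583, 596 and 474 in WT. The *brm* mutants and both triple mutants stood above WT by under 1 on the log2 scale, and *ABA2* was called in *brm-1 bcl7a bcl7b* (0.74 ± 0.18, adjusted p = 0.00158), *brm-3 bcl7a bcl7b* (0.67 ± 0.18, adjusted p = 0.00279) and *brm-3* (0.63 ± 0.18, adjusted p = 0.00678). *AAO3* (AT2G27150) had normalized counts of 155, 100.3 and 163 in *brm-1 bcl7a bcl7b* against 55.7, 109 and 87.9 in *brm-1*, and 139, 172 and 153 in *brm-3 bcl7a bcl7b* against 70.2, 56.9 and 37.2 in *brm-3*. Its counts were 117, 83.2 and 119.9 in *bcl7a bcl7b*, 32.2, 52.3 and 95.1 in *bcl7b*, 11.5, 80.1 and 38.0 in *bcl7a*, and 0, 49.6 and 51.2 in WT. The *brm-1*, *bcl7a bcl7b* and triple mutant libraries all lay above WT, where replicate 1 was at 0. *AAO3* was called in *brm-1 bcl7a bcl7b* (3.31 ± 0.96, adjusted p = 0.00694), *brm-3 bcl7a bcl7b* (3.49 ± 0.96, adjusted p = 0.00388) and *brm-1* (2.57 ± 0.96, adjusted p = 0.03). *NCED9*, a seed-expressed relative of *NCED3*, stayed at or under 39.3 in every library. Both *ABA2* and *AAO3* overlap genes on the opposite strand, and whether the counting used strand is not given in the sources used here. *ABA2* lost its call in *brm-1 bcl7a bcl7b* without *brm-1 bcl7a bcl7b* replicate 2 (log2 fold change 0.58), and in *brm-3 bcl7a bcl7b* without WT replicate 3 (log2 fold change 0.57), and in *brm-3* without WT replicate 3 (log2 fold change 0.52) or *brm-3* replicate 1 (log2 fold change 0.58). With the compared genotypes alone in the fit *AAO3* lost its call in *brm-1 bcl7a bcl7b* (adjusted p = 0.133), *brm-3 bcl7a bcl7b* (adjusted p = 0.11) and *brm-1* (adjusted p = 0.218). *AAO3* also lost its call in *brm-1* without WT replicate 1, *brm-1* replicate 2 or *brm-1* replicate 3 (adjusted p of 0.0676 to 0.348).

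The CYP707A enzymes hydroxylate ABA and so remove it. *CYP707A1* and *CYP707A3* were higher in several genotypes and *CYP707A2*, the member known from seeds, was lower in 3. *CYP707A1* (AT4G19230) had normalized counts of 151, 155 and 113 in *brm-1 bcl7a bcl7b* against 8.66, 13.9 and 11.7 in *brm-1*, and 69.2, 94.6 and 75.1 in *brm-3 bcl7a bcl7b* against 23.6, 57.5 and 39.9 in *brm-3*. Its counts were 97.6, 52.7 and 101 in *bcl7a bcl7b*, 47.3, 4.16 and 8.47 in *bcl7b*, 20.3, 32.1 and 22.1 in *bcl7a*, and 18.7, 6.14 and 5.82 in WT. Every library of both triple mutants, *brm-3* and *bcl7a bcl7b* lay above WT, and *brm-1* overlapped it. *CYP707A1* rose in *brm-1 bcl7a bcl7b* (3.82 ± 0.65, adjusted p = 4.91e-05), *brm-3 bcl7a bcl7b* (3.02 ± 0.65, adjusted p = 0.00047), *brm-3* (1.98 ± 0.65, adjusted p = 0.0186) and *bcl7a bcl7b* (2.89 ± 0.73, adjusted p = 0.00652), and was 0.31 ± 0.65, adjusted p = 0.719 in *brm-1*. *CYP707A3* (AT5G45340) had normalized counts of 84.0, 76.9 and 92.5 in *brm-1 bcl7a bcl7b* against 49.0, 47.3 and 56.4 in *brm-1*, and 74.8, 67.9 and 67.9 in *brm-3 bcl7a bcl7b* against 17.5, 39.9 and 14.9 in *brm-3*. Its counts were 193, 28.6 and 196 in *bcl7a bcl7b*, 47.3, 107 and 57.0 in *bcl7b*, 36.1, 29.3 and 90.6 in *bcl7a*, and 0, 33.6 and 14.9 in WT. The triple mutants and *brm-1* were above every WT library. *CYP707A3* rose in *brm-1 bcl7a bcl7b* (3.38 ± 0.88, adjusted p = 0.00303), *brm-3 bcl7a bcl7b* (3.12 ± 0.88, adjusted p = 0.00454), *brm-1* (2.66 ± 0.88, adjusted p = 0.015) and *bcl7a bcl7b* (3.22 ± 0.98, adjusted p = 0.0212). *CYP707A2* (AT2G29090) had normalized counts of 24.9, 25.3 and 9.54 in *brm-1 bcl7a bcl7b* against 38.7, 18.1 and 26.2 in *brm-1*, and 108, 57.9 and 11.5 in *brm-3 bcl7a bcl7b* against 56.4, 56.0 and 43.4 in *brm-3*. Its counts were 143, 95.1 and 144 in *bcl7a bcl7b*, 156, 182 and 146 in *bcl7b*, 146, 96.4 and 141 in *bcl7a*, and 119, 100.4 and 155 in WT. *brm-1 bcl7a bcl7b*, *brm-1* and *brm-3* lay below WT, and *brm-3 bcl7a bcl7b* spread from far below WT into its range. *CYP707A2* fell in *brm-1 bcl7a bcl7b* (-2.68 ± 0.57, adjusted p = 0.00048), *brm-3 bcl7a bcl7b* (-1.52 ± 0.57, adjusted p = 0.0269) and *brm-1* (-2.17 ± 0.57, adjusted p = 0.00293). *CYP707A4* reached at most 60.2 and was called in no mutant. *CYP707A1* lost its call in *brm-3* without WT replicate 2, WT replicate 3 or *brm-3* replicate 2 (adjusted p of 0.0574 to 0.0855), and in *bcl7a bcl7b* without the averaged sample of *bcl7a bcl7b* (adjusted p = 0.098). *CYP707A2* lost its call in *brm-3 bcl7a bcl7b* without WT replicate 3 (adjusted p = 0.0812) or *brm-3 bcl7a bcl7b* replicate 3 (adjusted p = 0.277) and with libraries rescaled to the same total (-0.52, adjusted p = 0.423). *CYP707A3* lost its call in *brm-1* without WT replicate 1 (adjusted p = 0.151), and in *bcl7a bcl7b* without WT replicate 1 (adjusted p = 0.0931) or the averaged sample of *bcl7a bcl7b* (adjusted p = 0.335).

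The receptor genes did not move together. *PYR1*, *PYL1*, *PYL8* and *PYL9* were higher in *brm-1* and *brm-3 bcl7a bcl7b*, *PYL4* was lower in the same genotypes, and *PYL6* fell in *brm-3* and rose in *brm-1*. In *brm-1 bcl7a bcl7b*, 2 higher and 0 lower of 9 receptor genes were called (22.2%, background 45.2%), in *brm-3 bcl7a bcl7b* 4 higher and 1 lower (55.6%, background 53.5%), in *brm-1* 5 higher and 1 lower (66.7%, background 48.1%), in *brm-3* 4 higher and 4 lower (88.9%, background 40%) and in *bcl7a bcl7b* 2 higher and 2 lower (44.4%, background 22.1%). PYR1, PYL1 and PYL2 form dimers in the absence of ABA, whereas most of the other receptors are monomers. *PYR1* (AT4G17870) had normalized counts of 3049.6, 2878 and 3037 in *brm-1 bcl7a bcl7b* against 8054, 8155 and 7233 in *brm-1*, and 8184, 8606 and 6469 in *brm-3 bcl7a bcl7b* against 2379, 4177 and 2203 in *brm-3*. Its counts were 603, 1894 and 613 in *bcl7a bcl7b*, 857, 500.5 and 511 in *bcl7b*, 789, 1042 and 497 in *bcl7a*, and 1256, 1319.7 and 665 in WT. The *brm* and triple mutant libraries were all above WT, those of *brm-1* and *brm-3 bcl7a bcl7b* the furthest, while the 2 samples of *bcl7a bcl7b* lay on either side of WT. *PYR1* rose in *brm-1 bcl7a bcl7b* (1.53 ± 0.34, adjusted p = 0.000795), *brm-3 bcl7a bcl7b* (2.90 ± 0.34, adjusted p = 2.46e-07), *brm-1* (2.92 ± 0.34, adjusted p = 3.22e-07) and *brm-3* (1.44 ± 0.34, adjusted p = 0.00176). *PYL1* (AT5G46790) had normalized counts of 1087, 1420.3 and 1556 in *brm-1 bcl7a bcl7b* against 887, 974 and 895 in *brm-1*, and 1343, 1409 and 953 in *brm-3 bcl7a bcl7b* against 667, 476 and 487 in *brm-3*. Its counts were 277, 610.4 and 280.5 in *bcl7a bcl7b*, 316, 465 and 289.8 in *bcl7b*, 438, 537 and 389 in *bcl7a*, and 650.4, 401 and 314 in WT. Here the triple mutants and *brm-1* stood above WT and *brm-3* overlapped it. *PYL1* rose in *brm-1 bcl7a bcl7b* (1.62 ± 0.28, adjusted p = 4.57e-05), *brm-3 bcl7a bcl7b* (1.49 ± 0.28, adjusted p = 9.39e-05) and *brm-1* (1.08 ± 0.28, adjusted p = 0.00254). *PYL2* was called only in *brm-3* among the mutants, with 10.7 to 17.9 there against 20.7 to 85.9 in WT (-1.70 ± 0.55, adjusted p = 0.0163).

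*PYL8* (AT5G53160) had normalized counts of 3243, 3099 and 3668 in *brm-1 bcl7a bcl7b* against 9398, 10848 and 10571 in *brm-1*, and 8859, 12113 and 10123 in *brm-3 bcl7a bcl7b* against 6633, 8162 and 5035 in *brm-3*. Its counts were 3811, 6077 and 3819 in *bcl7a bcl7b*, 2478, 1357 and 1815 in *bcl7b*, 2074, 2879 and 1864 in *bcl7a*, and 2866, 2746 and 1661 in WT. All libraries of the 5 genotypes lay above WT, *brm-1 bcl7a bcl7b* closest to it. *PYL8*, a receptor with a known role in root ABA responses, rose in *brm-3 bcl7a bcl7b* (2.13 ± 0.24, adjusted p = 1.64e-07), *brm-1* (2.12 ± 0.24, adjusted p = 2.47e-07), *brm-3* (1.46 ± 0.24, adjusted p = 5.06e-05) and *bcl7a bcl7b* (1.03 ± 0.27, adjusted p = 0.0088), and was 0.50 ± 0.24, adjusted p = 0.0969 in *brm-1 bcl7a bcl7b*. *PYL9* (AT1G01360) had normalized counts of 219.9, 214 and 159.7 in *brm-1 bcl7a bcl7b* against 535, 482 and 437 in *brm-1*, and 531, 539 and 579 in *brm-3 bcl7a bcl7b* against 784, 973 and 713 in *brm-3*. Its counts were 579, 457 and 578 in *bcl7a bcl7b*, 326, 209 and 312 in *bcl7b*, 249, 413 and 248 in *bcl7a*, and 305, 277 and 161 in WT. *brm-1 bcl7a bcl7b* was within and just below the WT range, and the 4 other genotypes above it. *PYL9*, a close relative of *PYL8*, rose in *brm-3 bcl7a bcl7b* (1.200 ± 0.25, adjusted p = 0.000316), *brm-1* (1.02 ± 0.25, adjusted p = 0.00182), *brm-3* (1.77 ± 0.25, adjusted p = 7.01e-06) and *bcl7a bcl7b* (1.10 ± 0.28, adjusted p = 0.00654). *PYL7*, whose locus overlaps opposite-strand genes, was called only in *brm-3*, with 1179 to 1825 there against 504 to 912 in WT (1.03 ± 0.34, adjusted p = 0.0178). *PYL2* lost its call in *brm-3* without WT replicate 2, WT replicate 3 or *brm-3* replicate 1 (adjusted p of 0.067 to 0.0794) and with libraries rescaled to the same total (-0.83, adjusted p = 0.203). *PYL7* lost its call in *brm-3* without WT replicate 3 (adjusted p = 0.0876) or *brm-3* replicate 1 (adjusted p = 0.0917). *PYL8* lost its call in *bcl7a bcl7b* without *bcl7a bcl7b* replicate 2 (adjusted p = 0.168). *PYL9* lost its call in *bcl7a bcl7b* without the averaged sample of *bcl7a bcl7b* (adjusted p = 0.092).

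*PYL4*, *PYL5* and *PYL6* form a subgroup of the family. *PYL4* (AT2G38310) had normalized counts of 2053, 2378 and 2919 in *brm-1 bcl7a bcl7b* against 1616, 1175 and 1667 in *brm-1*, and 1596, 1296 and 928 in *brm-3 bcl7a bcl7b* against 462, 626 and 811 in *brm-3*. Its counts were 518, 3612 and 529 in *bcl7a bcl7b*, 2337, 2329.9 and 2092 in *bcl7b*, 3462, 3078 and 3201 in *bcl7a*, and 5244, 5085 and 3234 in WT. *brm-3* and the averaged sample of *bcl7a bcl7b* were the lowest, and the triple mutants, *brm-1* and *bcl7b* also lay below WT. *PYL4* fell in *brm-3 bcl7a bcl7b* (-1.83 ± 0.40, adjusted p = 0.00058), *brm-1* (-1.59 ± 0.40, adjusted p = 0.00244), *brm-3* (-2.84 ± 0.40, adjusted p = 7.96e-06) and *bcl7a bcl7b* (-1.68 ± 0.45, adjusted p = 0.0101). *PYL5* (AT5G05440) had normalized counts of 2657, 4568 and 4539 in *brm-1 bcl7a bcl7b* against 10466, 9973 and 8928 in *brm-1*, and 10066, 8990.3 and 6544 in *brm-3 bcl7a bcl7b* against 1651, 2044 and 2044 in *brm-3*. Its counts were 929.9, 4999.8 and 924 in *bcl7a bcl7b*, 2839, 2535 and 1857 in *bcl7b*, 4440.3, 6260.3 and 2588 in *bcl7a*, and 7198, 6611 and 5576 in WT. *brm-1* lay above WT and *brm-3* below it, and *bcl7a bcl7b* was below in both samples. *PYL5* fell in *brm-3* (-1.75 ± 0.39, adjusted p = 0.00102) and *bcl7a bcl7b* (-1.58 ± 0.44, adjusted p = 0.0122), and was 0.60 ± 0.39, adjusted p = 0.206 in *brm-1*. *PYL6* (AT2G40330) had normalized counts of 199.9, 272 and 419 in *brm-1 bcl7a bcl7b* against 843, 839 and 918 in *brm-1*, and 655, 448 and 328 in *brm-3 bcl7a bcl7b* against 20.5, 12.4 and 18.6 in *brm-3*. Its counts were 16.8, 252 and 17.3 in *bcl7a bcl7b*, 69.4, 167 and 83.8 in *bcl7b*, 227, 104 and 188 in *bcl7a*, and 311, 228 and 143 in WT. *brm-1* and *brm-3 bcl7a bcl7b* were above every WT library and *brm-3* was far below. *PYL6* fell in *brm-3* (-3.61 ± 0.60, adjusted p = 4.79e-05) and rose in *brm-1* (1.99 ± 0.60, adjusted p = 0.00824). *PYL4* lost its call in *brm-3 bcl7a bcl7b* with libraries rescaled to the same total (-0.81, adjusted p = 0.0754), and in *brm-1* with libraries rescaled to the same total (-0.75, adjusted p = 0.106), and in *bcl7a bcl7b* without the averaged sample of *bcl7a bcl7b* (adjusted p = 0.597) and with libraries rescaled to the same total (-0.72, adjusted p = 0.174). *PYL5* lost its call in *brm-3* with libraries rescaled to the same total (-0.85, adjusted p = 0.0544), and in *bcl7a bcl7b* without the averaged sample of *bcl7a bcl7b* (adjusted p = 0.566) and with libraries rescaled to the same total (-0.61, adjusted p = 0.218).

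Between the *BRM* alleles, whose library sums lay in the same range, 4 of the 9 receptor genes were called higher and 0 lower in *brm-1* against *brm-3* (background 5.34% higher and 4.6% lower). *PYL6* was 5.61 ± 0.60, adjusted p = 1.5e-06, *PYL5* 2.36 ± 0.39, adjusted p = 0.000329, *PYL2* 2.14 ± 0.55, adjusted p = 0.0133 and *PYR1* 1.48 ± 0.34, adjusted p = 0.00614. For *PYL6* the 3 *brm-1* libraries held 839 to 918, against 12.4 to 20.5 in *brm-3*, so that WT (143 to 311) lay between the null and the hypomorphic allele. *PYL7* (803 to 823 in *brm-1* against 1179 to 1825 in *brm-3*, -0.77 ± 0.34, adjusted p = 0.169) and *PYL9* (437 to 535 in *brm-1* against 713 to 973 in *brm-3*, -0.76 ± 0.25, adjusted p = 0.0562) lay lower in *brm-1* without overlap. They were not called. The receptor genes thus did not all differ the same way. *PYL2* lost its call in *brm-1* against *brm-3* without *brm-3* replicate 1, *brm-1* replicate 1 or *brm-1* replicate 2 (adjusted p of 0.0501 to 0.0748).

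**Figure D2:**
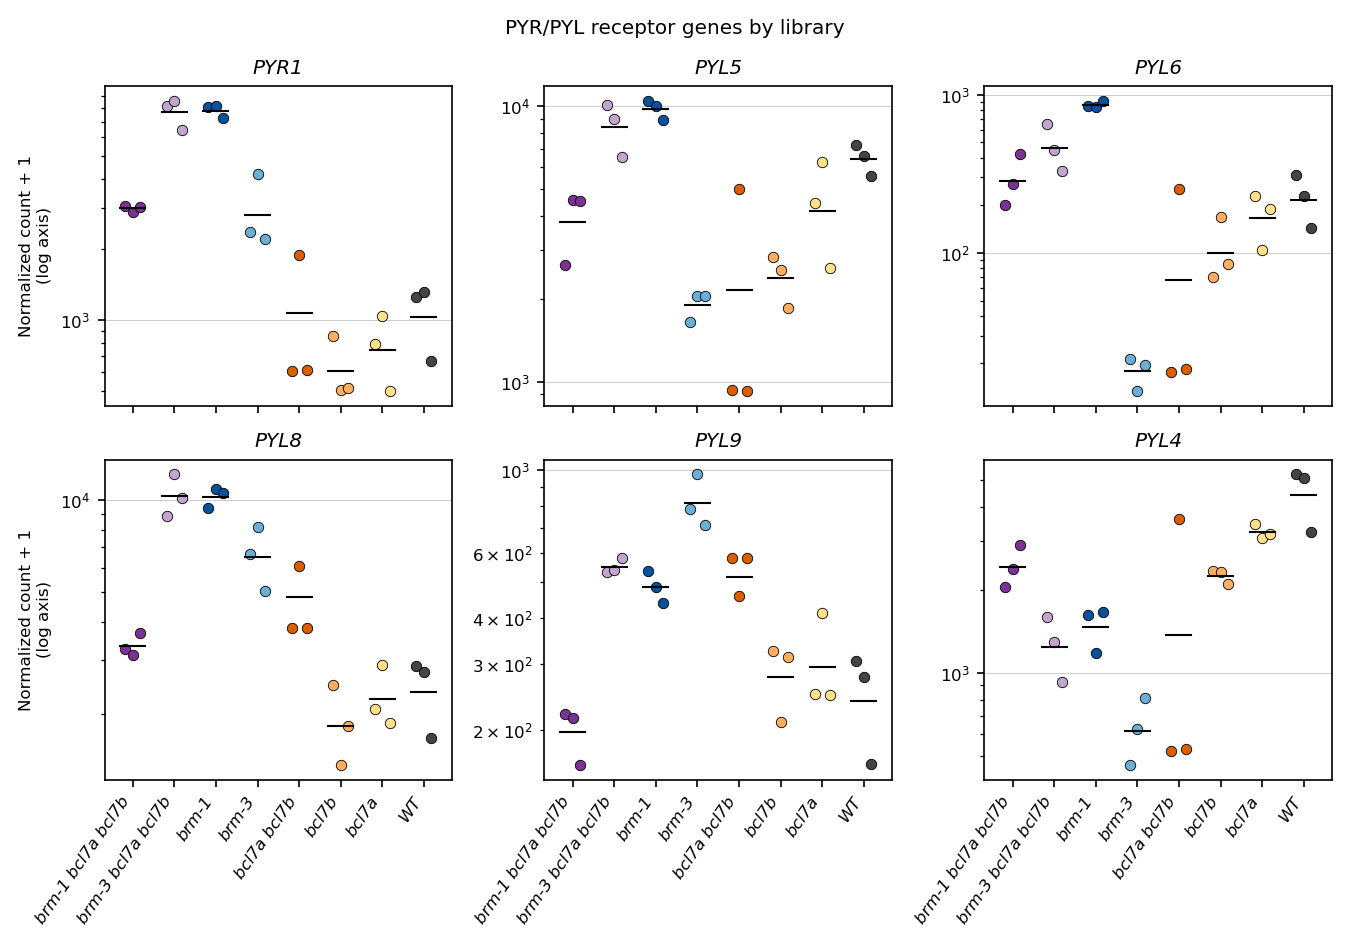
Normalized count + 1 (log axis) of 6 receptor genes in each library, by genotype. Points are libraries and bars are means on the log2 scale, with replicates 1 and 3 of *bcl7a bcl7b* averaged first, and *PYL6* sits between 839 and 918 in *brm-1* against 12.4 to 20.5 in *brm-3*.

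The PP2Cs bind the receptors and inhibit the SnRK2 kinases, and *ABI1*, *ABI2*, *HAB1*, *HAB2*, *PP2CA*, *AHG1* and the *HAI* genes make up the clade. *HAB1* and *HAB2* were higher in all 5 genotypes with low library sums, whereas *HAI1* was lower in 3 of them. *HAB1* (AT1G72770) had normalized counts of 222, 146 and 173 in *brm-1 bcl7a bcl7b* against 383, 327 and 291 in *brm-1*, and 358, 285 and 482 in *brm-3 bcl7a bcl7b* against 244, 296 and 230.0 in *brm-3*. Its counts were 454, 185 and 454 in *bcl7a bcl7b*, 161, 113 and 143 in *bcl7b*, 79.3, 94.3 and 169.7 in *bcl7a*, and 96.0, 92.5 and 78.5 in WT. Each library of those 5 genotypes, and of *bcl7b*, exceeded every WT library. *HAB1* rose in *brm-1 bcl7a bcl7b* (0.996 ± 0.32, adjusted p = 0.0131), *brm-3 bcl7a bcl7b* (2.04 ± 0.32, adjusted p = 1.17e-05), *brm-1* (1.89 ± 0.32, adjusted p = 3.77e-05), *brm-3* (1.51 ± 0.32, adjusted p = 0.000584) and *bcl7a bcl7b* (1.70 ± 0.36, adjusted p = 0.00151). *HAB2* (AT1G17550) had normalized counts of 210.0, 231 and 231 in *brm-1 bcl7a bcl7b* against 253, 282 and 222 in *brm-1*, and 239, 378 and 305 in *brm-3 bcl7a bcl7b* against 421, 416 and 369 in *brm-3*. Its counts were 287, 225 and 294 in *bcl7a bcl7b*, 154, 148 and 207 in *bcl7b*, 125, 208 and 126 in *bcl7a*, and 38.2, 89.1 and 144 in WT. Again no library of the 5 genotypes or of *bcl7b* reached down to WT. *HAB2* rose in *brm-1 bcl7a bcl7b* (1.49 ± 0.33, adjusted p = 0.000849), *brm-3 bcl7a bcl7b* (1.92 ± 0.33, adjusted p = 4.36e-05), *brm-1* (1.65 ± 0.33, adjusted p = 0.000283), *brm-3* (2.33 ± 0.33, adjusted p = 8.47e-06) and *bcl7a bcl7b* (1.68 ± 0.37, adjusted p = 0.00248). *HAI1* (AT5G59220) had normalized counts of 197, 416 and 285 in *brm-1 bcl7a bcl7b* against 40.1, 73.0 and 44.4 in *brm-1*, and 187, 126 and 77.7 in *brm-3 bcl7a bcl7b* against 575, 433 and 1209 in *brm-3*. Its counts were 5233, 382 and 5149.8 in *bcl7a bcl7b*, 1158, 1158 and 1332 in *bcl7b*, 527, 783 and 895 in *bcl7a*, and 732, 685 and 1151 in WT. The triple mutants and *brm-1* were below WT, *brm-1* the lowest, and the averaged sample of *bcl7a bcl7b* was above every other library. *HAI1*, a PP2C gene that ABA and drought induce, fell in *brm-1 bcl7a bcl7b* (-1.54 ± 0.58, adjusted p = 0.0331), *brm-3 bcl7a bcl7b* (-2.76 ± 0.58, adjusted p = 0.000351) and *brm-1* (-4.01 ± 0.58, adjusted p = 5.81e-06).

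*ABI1* is the PP2C gene whose dominant mutation first linked this family to ABA. *ABI1* (AT4G26080) had normalized counts of 690.0, 649.5 and 717 in *brm-1 bcl7a bcl7b* against 394, 455 and 456 in *brm-1*, and 624, 403 and 448 in *brm-3 bcl7a bcl7b* against 801, 1166 and 690.5 in *brm-3*. Its counts were 4433, 853 and 4411 in *bcl7a bcl7b*, 3023, 3381 and 4097 in *bcl7b*, 1588, 922 and 2918 in *bcl7a*, and 872, 835 and 834 in WT. The *bcl7b* libraries stood above WT and those of *brm-1* and both triple mutants below it, with no overlap. *ABI1* rose in *bcl7b* (2.03 ± 0.40, adjusted p = 0.00694) and fell in *brm-1* (-0.96 ± 0.40, adjusted p = 0.0473). *ABI1* overlaps an opposite-strand gene. Against WT, *PP2CA* was called in *bcl7b* alone (2.61 ± 0.51, adjusted p = 0.00679), where it held 5028 to 5184 against 742 to 1040.0 in WT. *ABI2* (-0.35 ± 0.56, adjusted p = 0.635 in *brm-1 bcl7a bcl7b*) and *HAI2* were called in no mutant, although *HAI2* held 44.8 to 108 in *bcl7b* against 0 to 8.86 in WT (4.38 ± 1.36, adjusted p = 0.094). *AHG1* and *HAI3* never exceeded 9.81 and 21.2 and were not tested. Between *brm-1* and *brm-3*, *HAI1* (-3.70 ± 0.58, adjusted p = 0.000188) and *PP2CA* (-1.85 ± 0.51, adjusted p = 0.0203) were lower in *brm-1*, with *HAI1* at 40.1 to 73.0 in *brm-1* against 433 to 1209 in *brm-3*. *HAB1* lost its call in *brm-1 bcl7a bcl7b* without *brm-1 bcl7a bcl7b* replicate 1 (adjusted p = 0.0661), and in *bcl7a bcl7b* without the averaged sample of *bcl7a bcl7b* (adjusted p = 0.0949). *HAI1* lost its call in *brm-1 bcl7a bcl7b* without WT replicate 3, *brm-1 bcl7a bcl7b* replicate 1 or *brm-1 bcl7a bcl7b* replicate 3 (adjusted p of 0.0709 to 0.128) and with libraries rescaled to the same total (-0.62, adjusted p = 0.323). *ABI1* lost its call in *brm-1* without any 1 of its 6 libraries (adjusted p of 0.077 to 0.116) and with libraries rescaled to the same total (-0.12, adjusted p = 0.797). *PP2CA* lost its call in *brm-1* against *brm-3* without *brm-3* replicate 2, *brm-1* replicate 1, *brm-1* replicate 2 or *brm-1* replicate 3 (adjusted p of 0.0516 to 0.0942).

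**Figure D3:**
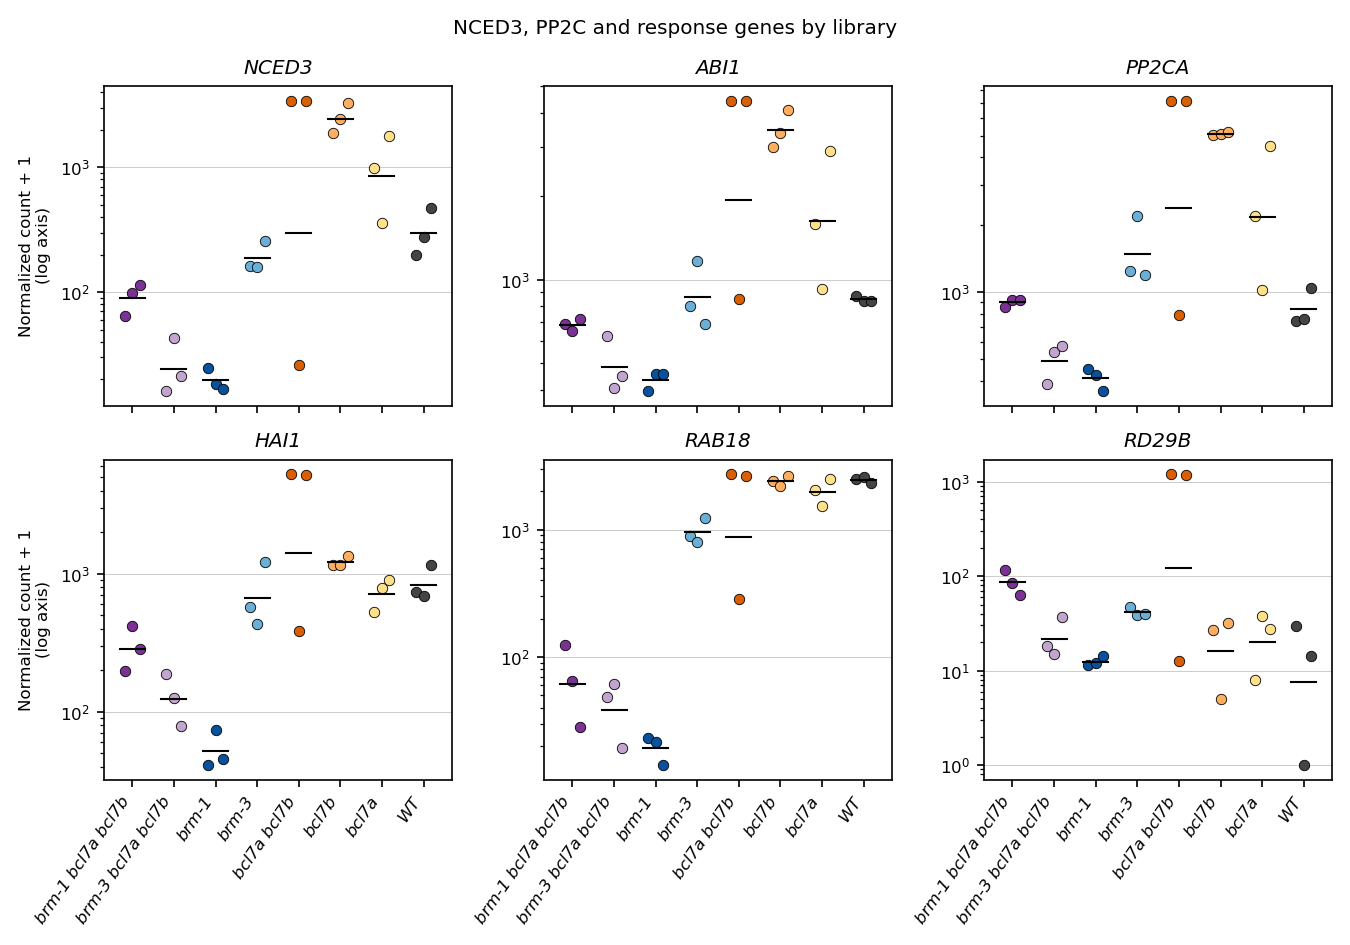
Normalized count + 1 (log axis) of *NCED3*, 3 PP2C genes, *RAB18* and *RD29B* in each library, by genotype. Points are libraries and bars are means on the log2 scale, with replicates 1 and 3 of *bcl7a bcl7b* averaged first, and in *bcl7a bcl7b* those libraries lie at 4433 and 4411 for *ABI1*, while replicate 2 lies at 853.

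Of the SnRK2 kinases, *SNRK2.6* and *SNRK2.3* were higher and *SNRK2.2*, with 3891 to 12918 over all libraries, was called in no mutant. *SNRK2.6* (also known as *OST1*) is the kinase of guard cells that closes stomata. *SNRK2.6* (AT4G33950) had normalized counts of 243, 297 and 317 in *brm-1 bcl7a bcl7b* against 307, 387 and 220.4 in *brm-1*, and 495, 345 and 326 in *brm-3 bcl7a bcl7b* against 212, 247 and 252 in *brm-3*. Its counts were 177, 234 and 181 in *bcl7a bcl7b*, 184, 140.3 and 179.9 in *bcl7b*, 120.3, 215 and 132 in *bcl7a*, and 91.3, 72.8 and 161 in WT. Every library of the 5 genotypes with low sums was above WT. It rose in *brm-1 bcl7a bcl7b* (1.46 ± 0.30, adjusted p = 0.000304), *brm-3 bcl7a bcl7b* (1.89 ± 0.30, adjusted p = 1.19e-05), *brm-1* (1.53 ± 0.30, adjusted p = 0.000183), *brm-3* (1.199 ± 0.30, adjusted p = 0.00242) and *bcl7a bcl7b* (0.99 ± 0.33, adjusted p = 0.0335). The summed guard cell markers went the other way: 439 to 551 in *brm-1 bcl7a bcl7b*, 1651 to 2351 in *brm-3 bcl7a bcl7b*, 3340.0 to 4806 in *brm-1*, 3592 to 4675 in *brm-3* and 1995 to 6319.9 in *bcl7a bcl7b*, against 5430.4 to 11996 in WT. AT1G22690 (median 2539 over all libraries) and AT1G04800 (median 795) weighed most in this sum, while *FAMA*, *MYB60*, *KAT1* and *GORK* had medians of 59.4 to 183. The part of the guard cell markers in the levels of the ABA genes was not tested. *SNRK2.3* acts with *SNRK2.2* in seeds and roots. *SNRK2.3* (AT5G66880) had normalized counts of 859, 768 and 755 in *brm-1 bcl7a bcl7b* against 1035, 1176 and 1203 in *brm-1*, and 1232, 1407 and 1110.5 in *brm-3 bcl7a bcl7b* against 1916, 1522 and 1108 in *brm-3*. Its counts were 805, 685 and 812 in *bcl7a bcl7b*, 753, 506 and 677 in *bcl7b*, 742, 963 and 678 in *bcl7a*, and 563, 874 and 629 in WT. *brm-3 bcl7a bcl7b*, *brm-1* and *brm-3* lay above WT and *brm-1 bcl7a bcl7b* within it. *SNRK2.3*, whose locus overlaps opposite-strand genes, rose in *brm-3 bcl7a bcl7b* (0.88 ± 0.20, adjusted p = 0.000947), *brm-1* (0.75 ± 0.20, adjusted p = 0.00435) and *brm-3* (1.13 ± 0.20, adjusted p = 0.000132). *SNRK2.6* lost its call in *bcl7a bcl7b* without WT replicate 1, WT replicate 2, the averaged sample of *bcl7a bcl7b* or *bcl7a bcl7b* replicate 2 (adjusted p of 0.0705 to 0.221).

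Among the bZIP genes, *ABI5*, *ABF1* and *ABF2* were higher in *brm-1* and *brm-3 bcl7a bcl7b*, and *ABF4* was lower in the triple mutants. The proteins bind ACGTG, and 23 of the 43 ABA genes (53.5%) held ACGTG or its reverse complement CACGT in the 250 bases before the annotated start, against 22.9% of 27443 genes. Overlapping matches counted as 1 site, and 12 of the 43 held at least 2 sites, as did 4.99% of all genes. CCGAC, the core of the dehydration-responsive element, was in 6 of the 43 (13.9%, against 11.97% of all genes), and CATGCA, the core of the RY element of seed genes, in 3 (6.98% and 8.43%), both strands searched.

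The window of *ABI5*, chr2:15207637-15207886 (minus strand) in the RefSeq copy of TAIR10.1, is shown because *ABI5* is both a member of the bZIP group and, with 4 such sites, among the genes richest in them. It is written 5′ to 3′ towards the start of the gene, with ACGTG and CACGT in capitals.
ABI5: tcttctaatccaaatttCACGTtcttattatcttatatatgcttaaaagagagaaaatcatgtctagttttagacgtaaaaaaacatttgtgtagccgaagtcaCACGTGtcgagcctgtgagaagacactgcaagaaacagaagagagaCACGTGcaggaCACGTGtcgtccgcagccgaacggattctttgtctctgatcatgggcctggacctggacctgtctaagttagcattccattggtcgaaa
The 4 sites begin 233, 146, 100 and 89 bases before the start.

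*ABI5* (AT2G36270) had normalized counts of 117, 124 and 115 in *brm-1 bcl7a bcl7b* against 105, 111 and 75.0 in *brm-1*, and 172, 85.1 and 80.2 in *brm-3 bcl7a bcl7b* against 79.3, 114 and 56.5 in *brm-3*. Its counts were 138, 45.4 and 138 in *bcl7a bcl7b*, 6.33, 52.6 and 15.5 in *bcl7b*, 31.2, 14.8 and 32.4 in *bcl7a*, and 14.4, 65.2 and 22.7 in WT. Both triple mutants and *brm-1* lay above every WT library, while *brm-3* and *bcl7a bcl7b* overlapped WT replicate 2. *ABI5* was called higher in *brm-1 bcl7a bcl7b* (2.05 ± 0.63, adjusted p = 0.0107), *brm-3 bcl7a bcl7b* (1.88 ± 0.63, adjusted p = 0.015) and *brm-1* (1.74 ± 0.63, adjusted p = 0.0262), and not in *brm-3* (1.49 ± 0.63, adjusted p = 0.0633), *bcl7a bcl7b* (1.48 ± 0.71, adjusted p = 0.139), *bcl7b* (-0.63 ± 0.63, adjusted p = 0.661) or *bcl7a* (-0.17 ± 0.63, adjusted p = 0.962). Adding *bcl7a bcl7b* to *brm-1* (0.31 ± 0.63, adjusted p = 0.764) or to *brm-3* (0.40 ± 0.63, adjusted p = 0.713) gave differences within the error for *ABI5*, as did *brm-1* against *brm-3* (0.25 ± 0.63, adjusted p = 0.888). *ABI5* lost its call in *brm-1 bcl7a bcl7b* without WT replicate 1 (adjusted p = 0.0546), and in *brm-3 bcl7a bcl7b* without WT replicate 1 (adjusted p = 0.0731) or *brm-3 bcl7a bcl7b* replicate 1 (adjusted p = 0.0765), and in *brm-1* without WT replicate 1, WT replicate 3, *brm-1* replicate 1 or *brm-1* replicate 2 (adjusted p of 0.069 to 0.116). With libraries rescaled to the same total *ABI5* was also called in *brm-3* (2.36, adjusted p = 0.00213) and *bcl7a bcl7b* (2.41, adjusted p = 0.00541).

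The ABFs act in seedlings and leaves. *ABF1* (AT1G49720) had normalized counts of 116, 107 and 116 in *brm-1 bcl7a bcl7b* against 443, 492 and 308 in *brm-1*, and 377, 459 and 404 in *brm-3 bcl7a bcl7b* against 220.3, 282 and 237 in *brm-3*. Its counts were 204, 288 and 208 in *bcl7a bcl7b*, 249, 267 and 157 in *bcl7b*, 169, 152 and 241 in *bcl7a*, and 169, 140.5 and 150.4 in WT. *brm-3 bcl7a bcl7b*, *brm-1*, *brm-3* and *bcl7a bcl7b* were above WT and *brm-1 bcl7a bcl7b* was below it. *ABF1* rose in *brm-3 bcl7a bcl7b* (1.43 ± 0.25, adjusted p = 4.4e-05), *brm-1* (1.40 ± 0.25, adjusted p = 6.76e-05) and *brm-3* (0.68 ± 0.25, adjusted p = 0.0325), and was -0.44 ± 0.25, adjusted p = 0.154 in *brm-1 bcl7a bcl7b*. *ABF2* (AT1G45249) had normalized counts of 209.6, 193 and 203 in *brm-1 bcl7a bcl7b* against 437, 550.3 and 385 in *brm-1*, and 327, 405 and 339 in *brm-3 bcl7a bcl7b* against 425, 392 and 427 in *brm-3*. Its counts were 1058, 279 and 1063 in *bcl7a bcl7b*, 263, 267 and 173 in *bcl7b*, 159, 68.9 and 194 in *bcl7a*, and 171, 61.9 and 115 in WT. All libraries of the 5 genotypes exceeded WT, with *brm-1 bcl7a bcl7b* the closest to it. *ABF2* rose in *brm-3 bcl7a bcl7b* (1.72 ± 0.40, adjusted p = 0.000987), *brm-1* (2.07 ± 0.40, adjusted p = 0.000198), *brm-3* (1.95 ± 0.40, adjusted p = 0.000527) and *bcl7a bcl7b* (2.34 ± 0.45, adjusted p = 0.000746). *ABF4* (AT3G19290) had normalized counts of 175, 157 and 101 in *brm-1 bcl7a bcl7b* against 304, 227 and 245 in *brm-1*, and 164, 158 and 249 in *brm-3 bcl7a bcl7b* against 379, 366 and 347 in *brm-3*. Its counts were 471, 295 and 469 in *bcl7a bcl7b*, 410.1, 362 and 467 in *bcl7b*, 290.4, 357 and 449 in *bcl7a*, and 192, 360.0 and 508 in WT. The *brm-1 bcl7a bcl7b* libraries were below WT without overlap. *ABF4* fell in *brm-1 bcl7a bcl7b* (-1.21 ± 0.30, adjusted p = 0.00201) and *brm-3 bcl7a bcl7b* (-0.81 ± 0.30, adjusted p = 0.0259). *ABF3* was called in no mutant other than *brm-3*, with 622 to 755 there against 201 to 595 in WT (1.001 ± 0.38, adjusted p = 0.038). *ABF1*, *ABF3* and *ABF4* overlap opposite-strand genes. *ABF1* lost its call in *brm-3* without WT replicate 2, WT replicate 3, *brm-3* replicate 2 or *brm-3* replicate 3 (adjusted p of 0.059 to 0.121). *ABF2* lost its call in *bcl7a bcl7b* without the averaged sample of *bcl7a bcl7b* (adjusted p = 0.0646). *ABF3* lost its call in *brm-3* without WT replicate 1, WT replicate 2, *brm-3* replicate 1, *brm-3* replicate 2 or *brm-3* replicate 3 (adjusted p of 0.0642 to 0.212). *ABF4* lost its call in *brm-1 bcl7a bcl7b* with libraries rescaled to the same total (-0.29, adjusted p = 0.433), and in *brm-3 bcl7a bcl7b* without WT replicate 2, WT replicate 3, *brm-3 bcl7a bcl7b* replicate 1 or *brm-3 bcl7a bcl7b* replicate 2 (adjusted p of 0.0705 to 0.18) and with libraries rescaled to the same total (0.21, adjusted p = 0.582).

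The 6 response genes are read-outs of ABA signalling: *RD29A*, *RD29B* and *RD22* are induced by drying, *RAB18* encodes a dehydrin, and *EM1* and *EM6* encode late embryogenesis abundant proteins of ripe seeds. Leaving *EM1* and *EM6* aside, *RD22*, *RD29A* and *RD29B* were called higher in *brm-1 bcl7a bcl7b* and *RAB18* lower (background 26.9% and 18.3%). In *brm-3 bcl7a bcl7b* *RD29A* was higher and *RAB18* lower (background 30.8% and 22.8%), and in *brm-1* *RAB18* and *RD22* were lower (28.9% and 19.2%). *RD22* was higher in *brm-3* (23.5% and 16.5%), and *RD22* and *RD29B* were higher in *bcl7a bcl7b* (11.9% and 10.2%). With *EM1* and *EM6* counted, 6 of 6 genes (100%, background 45.2%) were called in *brm-1 bcl7a bcl7b* and 3 of 6 (50%, background 22.1%) in *bcl7a bcl7b*. In each of *brm-3 bcl7a bcl7b*, *brm-1* and *brm-3* it was 2 of 6 (33.3%), below the background in either direction (53.5%, 48.1% and 40%). These counts include *EM1* in *brm-1 bcl7a bcl7b*, and *EM6* there, in *bcl7a bcl7b* and in *brm-3*. *RAB18* (AT5G66400) had normalized counts of 123, 63.5 and 27.1 in *brm-1 bcl7a bcl7b* against 22.2, 20.6 and 13.2 in *brm-1*, and 47.5, 60.4 and 18.1 in *brm-3 bcl7a bcl7b* against 893, 797 and 1229 in *brm-3*. Its counts were 2704, 285 and 2625 in *bcl7a bcl7b*, 2395, 2209 and 2631 in *bcl7b*, 2049, 1516 and 2471 in *bcl7a*, and 2498, 2584 and 2300.1 in WT. *RAB18* lay far below WT in *brm-1* and both triple mutants and moderately below it in *brm-3*, and in *bcl7a bcl7b* replicate 2 stood apart from the other libraries. It fell in *brm-1 bcl7a bcl7b* (-5.34 ± 0.56, adjusted p = 6.74e-08), in *brm-3 bcl7a bcl7b* (-5.997 ± 0.56, adjusted p = 7.34e-09) and in *brm-1* (-6.999 ± 0.56, adjusted p = 1.26e-09), the largest falls among the 39 genes. These calls held without any 1 library. *RAB18* overlaps a gene on the opposite strand. *RD22* (AT5G25610) had normalized counts of 10427, 9883 and 11547 in *brm-1 bcl7a bcl7b* against 1233, 1344 and 894 in *brm-1*, and 2247, 2029 and 1993 in *brm-3 bcl7a bcl7b* against 11772, 7487 and 14937 in *brm-3*. Its counts were 8351, 2268 and 8356 in *bcl7a bcl7b*, 1210.1, 1566 and 1492 in *bcl7b*, 2007, 1927 and 1881 in *bcl7a*, and 2039.6, 2299 and 2322 in WT. *brm-1 bcl7a bcl7b* and *brm-3* lay above WT, *brm-1* below it and *brm-3 bcl7a bcl7b* within or just below its range. *RD22* rose in *brm-1 bcl7a bcl7b* (2.26 ± 0.30, adjusted p = 1.85e-06), *brm-3* (2.31 ± 0.30, adjusted p = 2.35e-06) and *bcl7a bcl7b* (0.97 ± 0.33, adjusted p = 0.0387) and fell in *brm-1* (-0.96 ± 0.30, adjusted p = 0.0105).

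*RD29A* and *RD29B* stand next to each other on chromosome 5, and *EM1* and *EM6* encode related proteins on chromosomes 3 and 2. Their windows are shown because the members of each pair differ in their motifs or their levels: chr5:21240467-21240716 (plus strand) holds no ACGTG and 3 CCGAC sites, chr5:21236771-21237020 (plus strand) holds 4 ACGTG sites and 1 CCGAC, and chr3:19214472-19214721 (plus strand) and chr2:16780369-16780618 (minus strand) hold 2 ACGTG sites each. ACGTG and CACGT are again in capitals.
RD29A: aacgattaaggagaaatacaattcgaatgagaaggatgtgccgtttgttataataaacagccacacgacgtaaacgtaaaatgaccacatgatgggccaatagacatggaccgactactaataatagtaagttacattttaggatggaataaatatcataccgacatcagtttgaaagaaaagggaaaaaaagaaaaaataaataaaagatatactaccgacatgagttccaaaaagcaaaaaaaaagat
RD29B: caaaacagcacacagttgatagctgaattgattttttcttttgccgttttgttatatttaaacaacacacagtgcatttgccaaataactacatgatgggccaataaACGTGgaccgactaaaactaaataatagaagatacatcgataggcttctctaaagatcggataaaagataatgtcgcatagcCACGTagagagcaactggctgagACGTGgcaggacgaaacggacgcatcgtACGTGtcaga
EM1: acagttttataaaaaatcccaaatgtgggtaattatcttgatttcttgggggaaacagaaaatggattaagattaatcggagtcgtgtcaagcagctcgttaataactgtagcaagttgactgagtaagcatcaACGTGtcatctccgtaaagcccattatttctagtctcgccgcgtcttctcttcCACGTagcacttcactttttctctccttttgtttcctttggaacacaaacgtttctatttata
EM6: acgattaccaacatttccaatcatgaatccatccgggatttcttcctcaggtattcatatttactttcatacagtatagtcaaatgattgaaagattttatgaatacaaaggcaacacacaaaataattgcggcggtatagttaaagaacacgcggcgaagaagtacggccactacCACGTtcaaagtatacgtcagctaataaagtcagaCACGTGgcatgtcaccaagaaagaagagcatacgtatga
A match is a description of the letters in the window and not of a bound site.

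*RD29A* (AT5G52310) had normalized counts of 729, 746 and 481 in *brm-1 bcl7a bcl7b* against 168, 130.1 and 45.02 in *brm-1*, and 915, 559 and 1083 in *brm-3 bcl7a bcl7b* against 232, 159 and 301 in *brm-3*. Its counts were 1118, 13.7 and 1119 in *bcl7a bcl7b*, 369, 427 and 783 in *bcl7b*, 156, 169.9 and 275 in *bcl7a*, and 174, 139 and 141 in WT. Both triple mutants and *bcl7b* were above every WT library, and *bcl7a bcl7b* lay far above WT in its averaged sample and far below in replicate 2. *RD29A* rose in *brm-1 bcl7a bcl7b* (2.08 ± 0.85, adjusted p = 0.0499) and *brm-3 bcl7a bcl7b* (2.44 ± 0.85, adjusted p = 0.0193). *RD29B* (AT5G52300) had normalized counts of 116, 84.3 and 62.7 in *brm-1 bcl7a bcl7b* against 10.5, 10.9 and 13.2 in *brm-1*, and 17.2, 14.0 and 36.0 in *brm-3 bcl7a bcl7b* against 45.9, 37.7 and 38.5 in *brm-3*. Its counts were 1189.6, 11.5 and 1166 in *bcl7a bcl7b*, 25.5, 4.01 and 31.04 in *bcl7b*, 6.97, 37.1 and 26.5 in *bcl7a*, and 28.6, 0 and 13.2 in WT. *brm-1 bcl7a bcl7b* and *brm-3* were above WT, and replicate 2 of *bcl7a bcl7b* fell among the WT libraries. *RD29B* was called in *brm-1 bcl7a bcl7b* (3.52 ± 1.21, adjusted p = 0.0207) and *bcl7a bcl7b* (4.02 ± 1.36, adjusted p = 0.0363). *EM6* (AT2G40170) had normalized counts of 62.6, 4.46 and 22.7 in *brm-1 bcl7a bcl7b* against 0, 0 and 0.72 in *brm-1*, and 0 in all 3 *brm-3 bcl7a bcl7b* libraries against 79.0, 33.2 and 112 in *brm-3*. Its counts were 92.9, 50.02 and 95.9 in *bcl7a bcl7b*, 6.02, 0 and 0 in *bcl7b*, 1.37, 1.504 and 0 in *bcl7a*, and 0 in all 3 WT libraries. WT and *brm-3 bcl7a bcl7b* were listed at 0, *brm-1* was at or near 0, and all *brm-1 bcl7a bcl7b*, *bcl7a bcl7b* and *brm-3* libraries held counts, so that no fold change against WT is given. *EM6* passed the filter only through those genotypes, so its calls are not given as results. *EM1* held 130.2, 56.8 and 5.41 in *brm-1 bcl7a bcl7b*, 7.04, 1.94 and 3.74 in *brm-3*, and 10.9, 0 and 11.3 in *bcl7a bcl7b*, and was listed at 0 in every library of the other genotypes and WT. *RD29A* lost its call in *brm-1 bcl7a bcl7b* without any 1 of its 6 libraries (adjusted p of 0.0677 to 0.114), and in *brm-3 bcl7a bcl7b* without *brm-3 bcl7a bcl7b* replicate 1 (adjusted p = 0.0517) or *brm-3 bcl7a bcl7b* replicate 3 (adjusted p = 0.063). *RD29B* lost its call in *brm-1 bcl7a bcl7b* without WT replicate 2 (adjusted p = 0.158) or *brm-1 bcl7a bcl7b* replicate 1 (adjusted p = 0.0644), and in *bcl7a bcl7b* without WT replicate 2 (adjusted p = 0.155) or the averaged sample of *bcl7a bcl7b* (adjusted p = 0.775). *RD22* lost its call in *brm-1* without *brm-1* replicate 3 (adjusted p = 0.0581) and with libraries rescaled to the same total (-0.12, adjusted p = 0.725), and in *bcl7a bcl7b* without WT replicate 1, WT replicate 2, WT replicate 3 or the averaged sample of *bcl7a bcl7b* (adjusted p of 0.0544 to 0.967).

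**Figure D4:**
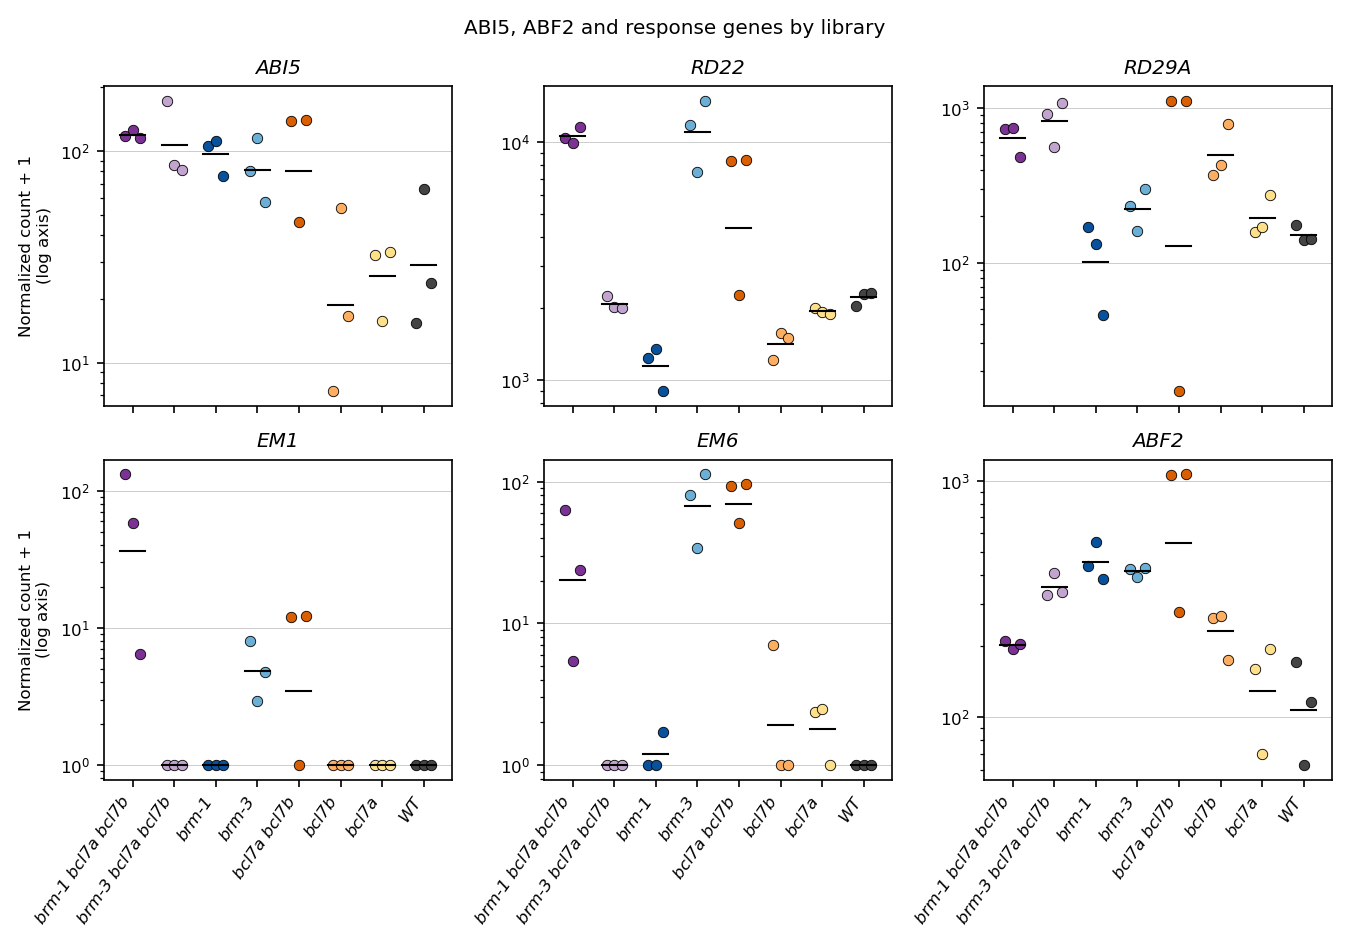
Normalized count + 1 (log axis) of *ABI5*, *RD22*, *RD29A*, *EM1*, *EM6* and *ABF2* in each library, by genotype. Points are libraries, a point at 1 is a library listed at 0, and bars are means on the log2 scale with replicates 1 and 3 of *bcl7a bcl7b* averaged first, and *RD22* lies between 9883 and 11547 in *brm-1 bcl7a bcl7b* against 894 to 1344 in *brm-1*.

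*ABI3* and *ABI4*, seed regulators of the ABA response, were too low to be tested. *ABI4* held 19.9, 0.89 and 32.5 in *brm-1 bcl7a bcl7b* and was listed at 0 in the other 21 libraries. *ABI3* held 11.9, 1.77 and 6.69 in *brm-1 bcl7a bcl7b*, and 4.18, 0 and 4.32 in *bcl7a bcl7b* and was at 0 elsewhere. They appeared in the genotype in which seed and embryo markers were highest. The 8 such markers summed to 15073, 1115 and 753 in *brm-1 bcl7a bcl7b*, 4.66 to 18.3 in *brm-3 bcl7a bcl7b*, 3.33 to 5.90 in *brm-1*, 7.11 to 47.3 in *brm-3*, 234, 15.6 and 226 in *bcl7a bcl7b*, and 0 to 111 in WT. Of these markers, *LEC1* was at 0 in 23 of the 24 libraries, *FUS3* in 20 and *LEC2* in 17, so that the sums were those of storage protein and oleosin genes. *EM1* was highest in the same library as the seed sum, replicate 1 of *brm-1 bcl7a bcl7b*, whereas *EM6* was as high in *brm-3*, where the sum stayed at 7.11 to 47.3. The part of seed gene expression in these values was not tested.

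Comparisons within the *brm* backgrounds set libraries with like sums against each other. Loss of *BCL7A* and *BCL7B* in *brm-1* gave 7 higher and 10 lower (background 14.2% and 15.3%, 29.5% in all), and in *brm-3* it gave 5 higher and 7 lower (background 9.08% and 12.1%, 21.2% in all). In *brm-1 bcl7a bcl7b* against *brm-1*, 0 of the 9 receptor genes were called higher and 5 lower. Of the response genes other than *EM1* and *EM6*, *RD22*, *RD29A* and *RAB18* were higher and 0 lower. In *brm-3 bcl7a bcl7b* against *brm-3*, 4 receptor genes were higher and 0 lower. There, of the same response genes, *RAB18* and *RD22* were lower and 0 higher. Whether the roles differed between the 2 backgrounds was not tested. *PYL1* and *PYL4* lay higher in the triple mutant in both, with 1087 to 1556 in *brm-1 bcl7a bcl7b* against 887 to 974 in *brm-1* for *PYL1* (0.54 ± 0.28, adjusted p = 0.143). *PYL4* held 2053 to 2919 in *brm-1 bcl7a bcl7b* against 1175 to 1667 in *brm-1* (0.72 ± 0.40, adjusted p = 0.189) and 928 to 1596 in *brm-3 bcl7a bcl7b* against 462 to 811 in *brm-3* (1.01 ± 0.40, adjusted p = 0.0772). The lower receptor genes in *brm-1 bcl7a bcl7b* against *brm-1* were *PYR1* (-1.38 ± 0.34, adjusted p = 0.00321), *PYL5* (-1.36 ± 0.39, adjusted p = 0.0101), *PYL6* (-1.61 ± 0.60, adjusted p = 0.0441), *PYL8* (-1.62 ± 0.24, adjusted p = 2.2e-05) and *PYL9* (-1.30 ± 0.25, adjusted p = 0.000343). The higher receptor genes in *brm-3 bcl7a bcl7b* against *brm-3* were *PYR1* (1.46 ± 0.34, adjusted p = 0.00324), *PYL1* (1.18 ± 0.28, adjusted p = 0.00325), *PYL5* (2.14 ± 0.39, adjusted p = 0.000342) and *PYL6* (4.69 ± 0.60, adjusted p = 6.34e-06). The values with *brm-1* as the background were 3.22 ± 0.30, adjusted p = 5.07e-08 for *RD22*, 2.67 ± 0.85, adjusted p = 0.0201 for *RD29A* and 1.66 ± 0.56, adjusted p = 0.0266 for *RAB18*. *RD29B* was 2.79 ± 1.21, adjusted p = 0.0862. With *brm-3* as the background, *RAB18* (-4.64 ± 0.56, adjusted p = 3.13e-06) and *RD22* (-2.39 ± 0.30, adjusted p = 4.79e-06) fell, and *EM6* was listed at 0 in the triple mutant. *PYL5* lost its call in *brm-1 bcl7a bcl7b* against *brm-1* without *brm-1 bcl7a bcl7b* replicate 1 (adjusted p = 0.0634). *PYL6* lost its call in *brm-1 bcl7a bcl7b* against *brm-1* without *brm-1* replicate 1, *brm-1* replicate 2, *brm-1* replicate 3, *brm-1 bcl7a bcl7b* replicate 1 or *brm-1 bcl7a bcl7b* replicate 2 (adjusted p of 0.0923 to 0.151) and with libraries rescaled to the same total (-1.52, adjusted p = 0.0525). *RD29A* lost its call in *brm-1 bcl7a bcl7b* against *brm-1* without *brm-1* replicate 3, *brm-1 bcl7a bcl7b* replicate 1 or *brm-1 bcl7a bcl7b* replicate 2 (adjusted p of 0.0576 to 0.103). *RAB18* lost its call in *brm-1 bcl7a bcl7b* against *brm-1* without *brm-1* replicate 2, *brm-1* replicate 3, *brm-1 bcl7a bcl7b* replicate 1 or *brm-1 bcl7a bcl7b* replicate 2 (adjusted p of 0.0519 to 0.166).

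Other roles moved too. *ABF1* fell by 1.84 and *ABF2* by 1.16 in *brm-1 bcl7a bcl7b* against *brm-1* (adjusted p = 6.24e-06 and 0.0314), and *CYP707A1* rose (3.52 ± 0.65, adjusted p = 0.000242). *ABF1* rose instead with *brm-3* as the background (0.75 ± 0.25, adjusted p = 0.0323), and *ABF4* fell in both (-0.86 ± 0.30, adjusted p = 0.0311 with *brm-1*, and -0.96 ± 0.30, adjusted p = 0.0234 with *brm-3*). *HAI1* rose on loss of *BCL7A* and *BCL7B* in *brm-1* (2.47 ± 0.58, adjusted p = 0.00217) and fell in *brm-3* (-2.45 ± 0.58, adjusted p = 0.00367), as did *NCED3* (-2.94 ± 0.97, adjusted p = 0.0317) and *PP2CA* (-1.59 ± 0.51, adjusted p = 0.0264) in *brm-3*, while *NCED3* was 2.196 ± 0.97, adjusted p = 0.0907 in *brm-1*. *ABA1* (-0.64 ± 0.21, adjusted p = 0.0234) and *HAB1* (-0.90 ± 0.32, adjusted p = 0.0346) were the other lower genes in *brm-1 bcl7a bcl7b*. *HAI1* held 197 to 416 in *brm-1 bcl7a bcl7b* against 40.1 to 73.0 in *brm-1*, and 77.7 to 187 in *brm-3 bcl7a bcl7b* against 433 to 1209 in *brm-3*. *ABA1* lost its call in *brm-1 bcl7a bcl7b* against *brm-1* without *brm-1* replicate 1, *brm-1* replicate 2 or *brm-1 bcl7a bcl7b* replicate 2 (adjusted p of 0.07 to 0.152) and with libraries rescaled to the same total (-0.55, adjusted p = 0.0593). *NCED3* lost its call in *brm-3 bcl7a bcl7b* against *brm-3* without *brm-3* replicate 1, *brm-3* replicate 2, *brm-3* replicate 3, *brm-3 bcl7a bcl7b* replicate 1 or *brm-3 bcl7a bcl7b* replicate 3 (adjusted p of 0.0604 to 0.107). *HAB1* lost its call in *brm-1 bcl7a bcl7b* against *brm-1* without *brm-1* replicate 1, *brm-1* replicate 2, *brm-1 bcl7a bcl7b* replicate 2 or *brm-1 bcl7a bcl7b* replicate 3 (adjusted p of 0.0804 to 0.131) and with libraries rescaled to the same total (-0.81, adjusted p = 0.076). *PP2CA* lost its call in *brm-3 bcl7a bcl7b* against *brm-3* without *brm-3* replicate 2 (adjusted p = 0.117) or *brm-3 bcl7a bcl7b* replicate 1 (adjusted p = 0.0977). *ABF1* lost its call in *brm-3 bcl7a bcl7b* against *brm-3* without *brm-3* replicate 1, *brm-3* replicate 3, *brm-3 bcl7a bcl7b* replicate 2 or *brm-3 bcl7a bcl7b* replicate 3 (adjusted p of 0.067 to 0.107). *ABF2* lost its call in *brm-1 bcl7a bcl7b* against *brm-1* without *brm-1* replicate 1, *brm-1* replicate 2, *brm-1 bcl7a bcl7b* replicate 1, *brm-1 bcl7a bcl7b* replicate 2 or *brm-1 bcl7a bcl7b* replicate 3 (adjusted p of 0.0627 to 0.118). *ABF4* lost its call in *brm-1 bcl7a bcl7b* against *brm-1* without *brm-1* replicate 1, *brm-1* replicate 3 or *brm-1 bcl7a bcl7b* replicate 3 (adjusted p of 0.0563 to 0.171) and with libraries rescaled to the same total (-0.78, adjusted p = 0.0663), and in *brm-3 bcl7a bcl7b* against *brm-3* without *brm-3* replicate 1, *brm-3* replicate 2, *brm-3* replicate 3, *brm-3 bcl7a bcl7b* replicate 1 or *brm-3 bcl7a bcl7b* replicate 2 (adjusted p of 0.054 to 0.0841) and with libraries rescaled to the same total (-0.84, adjusted p = 0.0612).

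Whether the effect of losing BCL7A and BCL7B differed between a *brm* background and WT was tested as an interaction, the difference of the triple mutant from its *brm* parent minus that of *bcl7a bcl7b* from WT. This uses WT and *bcl7a bcl7b*, whose library sums differ and whose 2 samples of *bcl7a bcl7b* stood apart. With *brm-1*, the genes that passed were 4 higher and 7 lower (background 14.7% and 16.5%, 31.2% in all), and with *brm-3* 4 higher and 9 lower (background 5.2% and 6.29%, 11.5% in all). Rescaled to the same total, these counts were 3 higher and 13 lower (background after rescaling 4.73% and 34.5%) and 4 higher and 22 lower (background 2.22% and 31.7%). *RD22* is an example. Its loss-of-BCL7 effect was 3.22 in *brm-1*, -2.39 in *brm-3* and 0.97 in WT, and the interactions were 2.24 ± 0.45, adjusted p = 0.000555 with *brm-1* and -3.37 ± 0.45, adjusted p = 3.7e-05 with *brm-3*. For *PYL8* the effects were -1.62 in *brm-1*, 0.66 in *brm-3* and 1.03 in WT, with an interaction of -2.65 ± 0.36, adjusted p = 1.06e-05 with *brm-1*. For *PYL6* they were -1.61 in *brm-1*, 4.69 in *brm-3* and -1.69 in WT, with an interaction of 6.38 ± 0.90, adjusted p = 6.51e-05 with *brm-3*. *RAB18* moved in opposite directions in the 2 interactions, 3.16 ± 0.84, adjusted p = 0.00618 with *brm-1* and -3.14 ± 0.84, adjusted p = 0.0162 with *brm-3*. *RAB18* lost its call for the interaction with *brm-1* without *bcl7a bcl7b* replicate 2 (adjusted p = 0.115), and for the interaction with *brm-3* without the averaged sample of *bcl7a bcl7b* (adjusted p = 0.218).

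**Figure D5:**
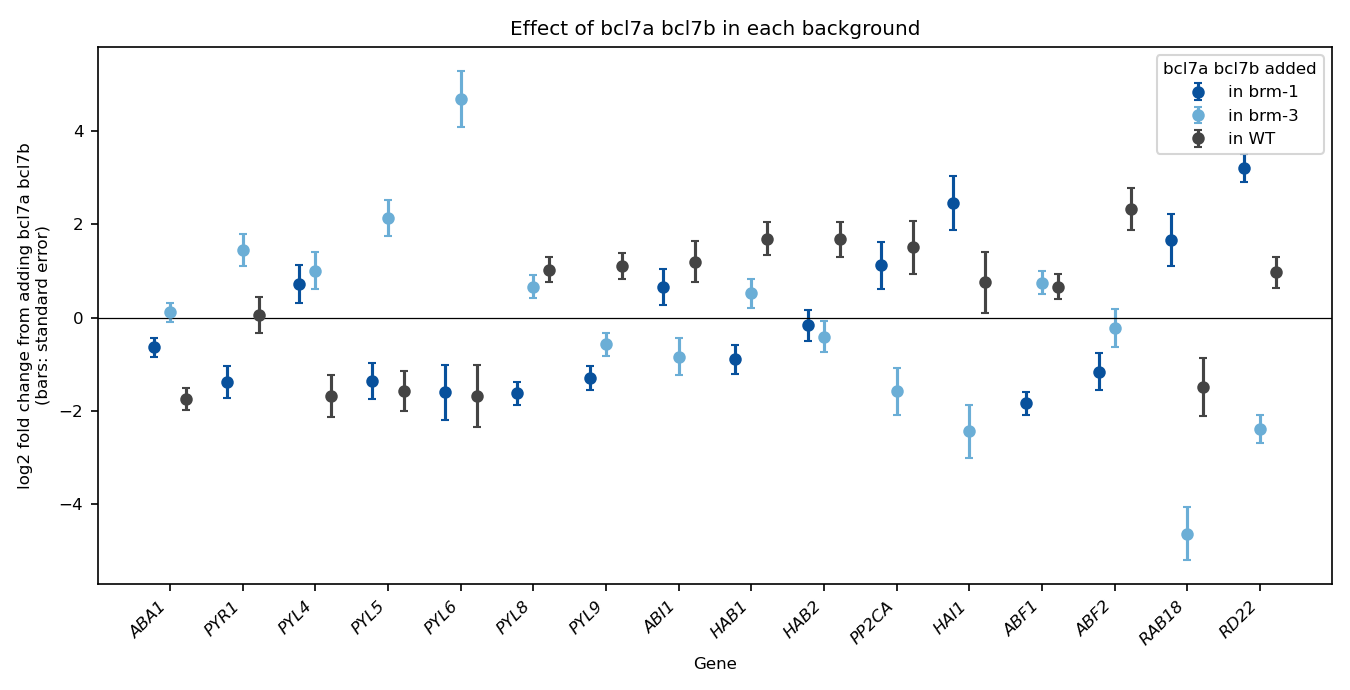
Log2 fold change (± standard error) on loss of *BCL7A* and *BCL7B* in *brm-1*, *brm-3* and WT. Only ABA genes called in an interaction are drawn, without *EM6*, so a difference between backgrounds was a condition of the choice. Points are the fitted differences of each *bcl7a bcl7b*-carrying genotype from its parent, and *RD22* lies above 0 in *brm-1* and WT and below 0 in *brm-3*.

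Between the alleles of *BRM*, 4 higher and 7 lower (background 5.34% and 4.6%, 9.94% in all) were called among the 39 genes in *brm-1* against *brm-3*. Beside the receptor genes above, the lower genes were *RAB18* (-5.64 ± 0.56, adjusted p = 5.32e-07), *RD22* (-3.26 ± 0.30, adjusted p = 1.91e-07), *HAI1*, *PP2CA*, *NCED3* (-3.25 ± 0.97, adjusted p = 0.0331) and *ABF3* (-1.26 ± 0.38, adjusted p = 0.0351). *EM6* is also in this count but is not given as a result. *RAB18* held 13.2 to 22.2 in *brm-1* against 797 to 1229 in *brm-3*, and *RD22* 894 to 1344 in *brm-1* against 7487 to 14937 in *brm-3*, without overlap. *NCED3* and *ABF3* lost these calls whenever any 1 library of the comparison was left out (adjusted p of 0.0645 to 0.119 for *NCED3*, and adjusted p of 0.0658 to 0.123 for *ABF3*). In *brm-1* against *bcl7a bcl7b*, 6 higher and 9 lower (background 11.5% and 9.84%, 21.4% in all) were called, among them *RAB18* (-5.51 ± 0.63, adjusted p = 3.84e-06), *PYR1* (2.86 ± 0.38, adjusted p = 1.94e-05) and *PYL5* (2.18 ± 0.44, adjusted p = 0.000969). With 1 library left out, *RAB18* ranged from -7.12 to -3.90 and *PYR1* from 2.04 to 3.68, both called throughout. Without the averaged sample of *bcl7a bcl7b*, *PYL5* was 0.97 (adjusted p = 0.0912) and lost its call, as did *NCED3*, *CYP707A1*, *CYP707A2*, *PYL1*, *PYL2*, *PYL8*, *ABI1* and *PP2CA* (adjusted p of 0.11 to 0.772). Without replicate 2 *PYL5* was 3.40.

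The *bcl7a bcl7b* libraries divided within the genotype. Replicates 1 and 3, counted as 1 sample, and replicate 2 differed by more than 2 on the log2 scale in 15 of the 39 genes (38.5%), 12 of them higher in the averaged pair, against 7.06% of all genes tested. *NCED3* held 3418 and 3438 in the pair and 25.1 in replicate 2, and *RD29A* 1118 and 1119 in the pair and 13.7 in replicate 2, with WT between them. *NCED3*, *ABA2*, *PYL7*, *HAI1*, *RD29A* and *RAB18* were above WT in the pair and below it in replicate 2, and *PYR1* the other way. Without the averaged sample 7 of the 39 genes were called in *bcl7a bcl7b* against WT (background 11.5%), and without replicate 2 it was 21 (background 14.8%), so that the calls for this genotype depended on which sample was used. Leaf marker sums were 1383420 and 1378330 in the pair and 942165 in replicate 2, and guard cell marker sums 1994.79 and 2016.33 in the pair and 6319.85 in replicate 2. The part of these in the differences was not tested.

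In the single mutants, *ABI1* and *PP2CA* were called in *bcl7b* (5.13%, background 2.08%) and 0 genes in *bcl7a* (background 0.352%) by limma. An unadjusted p under 0.05 was found for 13 genes in *bcl7b* and 6 in *bcl7a*. The share of all genes with such a p was not computed, so these counts have no background to be set against. In *bcl7b*, *NCED3* held 1883 to 3260.0 against 198 to 475 in WT without overlap and was not called (3.05 ± 0.97, adjusted p = 0.103), and *RD29A* held 369 to 783 against 139 to 174 (1.72 ± 0.85, adjusted p = 0.316). In *bcl7a*, *NCED3* held 359 to 1790.3 (1.53 ± 0.97, adjusted p = 0.561), overlapping WT, and *ABA1* 995 to 1395 against 1555 to 1951 in WT (-0.46 ± 0.21, adjusted p = 0.391). The test of whether the change in *bcl7a bcl7b* differed from the sum of those in the 2 singles called 2 higher and 0 lower (background 3.03% and 2.98%, 6.01% in all): *PYL8* (1.47 ± 0.36, adjusted p = 0.0183) and *RD22* (1.82 ± 0.45, adjusted p = 0.0181). Mean log2 values of *PYL8* were 11.1 in *bcl7a*, 10.8 in *bcl7b* and 12.2 in *bcl7a bcl7b*, against 11.2 in WT. Those of *RD22* were 10.9, 10.5 and 12.1, against 11.1 in WT. Both genes thus lay below WT in the singles and above it in the double mutant. *PYL8* lost its call without *bcl7a* replicate 3 (adjusted p = 0.0535), *bcl7b* replicate 2 (adjusted p = 0.0575) or *bcl7a bcl7b* replicate 2 (adjusted p = 0.142), and *RD22* without the averaged sample of *bcl7a bcl7b* (adjusted p = 0.138).

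The 33 other ABA pathway genes (further *NCED*, receptor and *SnRK2* genes, glucosidases that free stored ABA, transporters, *AFP* repressors and ABA-responsive genes) were taken by locus from a second list, and 29 were tested. Called genes were 10 higher and 6 lower in *brm-1 bcl7a bcl7b* (background 45.2%), 15 higher and 5 lower in *brm-3 bcl7a bcl7b* (53.5%), 16 higher and 6 lower in *brm-1* (48.1%), 9 higher and 1 lower in *brm-3* (40%) and 6 higher and 3 lower in *bcl7a bcl7b* (22.1%). In *bcl7b* 4 were higher and 0 lower (13.8%, background 2.08%), and in *bcl7a* 0 were called (background 0.352%). By the rule of the largest changes in *brm-1* against WT, *LTP4* rose (7.94 ± 0.99, adjusted p = 8.27e-07) and so did *LTP3* (4.63 ± 1.16, adjusted p = 0.00205), both lipid transfer protein genes, while *AFP3* (-2.24 ± 0.36, adjusted p = 2.36e-05), *NPF4.6* (-2.197 ± 0.20, adjusted p = 9.16e-09) and *GBF3* (-1.73 ± 0.45, adjusted p = 0.00274) fell. *LTP4* held 202 to 812 in *brm-1* against 0 to 6.33 in WT, where replicates 1 and 3 were at 0, and *LTP3* 576 to 1908 in *brm-1* against 34.8 to 85.0 in WT. The libraries did not overlap for *AFP3* (656 to 840.5 in *brm-1* against 2712 to 4023 in WT), *NPF4.6* (263 to 304 against 1021 to 1723), a nitrate and ABA transporter gene, or *GBF3* (44.8 to 51.2 against 108 to 279). With libraries rescaled to the same total, 15 higher and 2 lower were called in *brm-1 bcl7a bcl7b* (background after rescaling 54.1% and 6.91%), 17 higher and 1 lower in *brm-3 bcl7a bcl7b* (55.8% and 9.22%), 18 higher and 2 lower in *brm-1* (51.7% and 7.13%), 12 higher and 1 lower in *brm-3* (50.5% and 4.15%) and 15 higher and 0 lower in *bcl7a bcl7b* (50.2% and 1.69%). *DPBF2*, a bZIP factor related to *ABI5*, held 294, 439 and 44.5 in *brm-1*, 196, 26.9 and 42.8 in *brm-3 bcl7a bcl7b*, and 0 in the other 18 libraries, WT included, so that no fold change is given.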

How the data were processed

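RNA-seq was performed by the authors on 24 libraries. Per the submitters' processing notes, reads were quantified with Salmon 1.5.1 and normalized with DESeq2 (given as version 3.10), on the TAIR10 build. The deposited values are normalized counts per gene, a signal already divided by a size factor for each library, and were used as deposited. The study's methods call the quantities TPM, but 84.3% to 92.2% of low values lay within 0.15 of a whole multiple of 1 step per library, so they were treated as scaled counts and tested on a log scale and not with a count model. Whether counting used strand is not given in the sources used here.

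Genotypes were taken from the sample labels. Values were transformed as log2(value + 1), and the 21596 genes that reached 10 in 3 or more libraries were fitted with limma 3.58.1 in R 4.3.3, with 1 mean per genotype, a trended prior and Benjamini-Hochberg adjustment over all genes tested. A gene was called at an adjusted p under 0.05 and a change above 0.6. Replicates 1 and 3 of *bcl7a bcl7b* were averaged, so 23 samples entered the fit. The study's methods describe the 3 libraries of each genotype as biological replicates whose RNA was sequenced separately, and neither they nor the labels say how the plants were divided, so p-values measure the spread between these libraries. The fit was tested on simulated data with 200 changed genes. A log2 change of 1 was recovered for 9% of them in *bcl7a bcl7b* and 19% in *brm-1* against WT, and a change of 3 for 65.5% and 71.5%. Among unchanged genes 0 to 12 were called. A gene that was not called is therefore not shown to be unchanged.

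The 43 genes and the other lists were chosen with earlier results of these data known. Values in every library are given for *ABI5* and for genes called in at least 2 of the 7 comparisons with WT, and for the other ABA pathway genes the 3 largest rises and the 3 largest falls called in *brm-1* are named. Promoter windows are the 250 bases before the gene start in RefSeq TAIR10.1, in which all 43 genes were matched by locus. The alternatives tried were other pseudocounts, filters and scalings, a fold limit of 1, the compared genotypes alone, all 24 libraries as deposited, a replicate block, and leaving out each library in turn. Figures were drawn with matplotlib 3.10.9.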

Additional observations from a re-analysis of the deposited data

Results flagged for a closer look

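The effect of losing BCL7A and BCL7B differed between *brm-1* and WT for 11 of the 39 ABA genes by the test of the interaction itself (limma, Benjamini-Hochberg). This was 28.2% of them, no more than the 31.2% of all genes tested that passed. On the log2 scale, the effect in *brm-1* minus that in WT, with its standard error, was, in turn, *ABA1* (1.10 ± 0.32, adjusted p = 0.0101), *PYR1* (-1.44 ± 0.51, adjusted p = 0.0351), *PYL4* (2.41 ± 0.61, adjusted p = 0.00418), *PYL8* (-2.65 ± 0.36, adjusted p = 1.06e-05), *PYL9* (-2.40 ± 0.37, adjusted p = 4.35e-05), *HAB1* (-2.59 ± 0.48, adjusted p = 0.00025), *HAB2* (-1.85 ± 0.50, adjusted p = 0.00709), *ABF1* (-2.51 ± 0.37, adjusted p = 2.49e-05), *ABF2* (-3.50 ± 0.60, adjusted p = 0.000134), *RAB18* (3.15 ± 0.84, adjusted p = 0.00618) and *RD22* (2.24 ± 0.45, adjusted p = 0.000555). Left out 1 at a time, libraries ended 4 of these calls. *PYR1* lost its call without WT replicate 3, *bcl7a bcl7b* replicate 2 (-0.62), *brm-1* replicate 1 or 2, or any 1 library of *brm-1 bcl7a bcl7b* (adjusted p of 0.0522 to 0.379). *PYL4* (1.01, adjusted p = 0.0589) lost it without the averaged sample of *bcl7a bcl7b*, and *ABA1* (0.67, adjusted p = 0.133) and *RAB18* (1.55, adjusted p = 0.115) without *bcl7a bcl7b* replicate 2. *RD22* (1.302) and *PYL4* (3.80) stayed called without that replicate. Without the averaged sample *PYR1* was -2.26 and *RAB18* 4.77.

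Between *brm-3* and WT it differed for 13 genes (33.3%, background 11.5%), with the effect in *brm-3* minus that in WT being, in turn, *ABA1* (1.85 ± 0.32, adjusted p = 0.000452), *PYL4* (2.69 ± 0.61, adjusted p = 0.00509), *PYL5* (3.72 ± 0.59, adjusted p = 0.000204), *PYL6* (6.38 ± 0.90, adjusted p = 6.51e-05), *PYL9* (-1.68 ± 0.37, adjusted p = 0.00479), *ABI1* (-2.04 ± 0.59, adjusted p = 0.0277), *HAB2* (-2.09 ± 0.50, adjusted p = 0.00784), *PP2CA* (-3.10 ± 0.76, adjusted p = 0.00921), *HAI1* (-3.20 ± 0.87, adjusted p = 0.0181), *ABF2* (-2.56 ± 0.60, adjusted p = 0.00726), *RAB18* (-3.14 ± 0.84, adjusted p = 0.0162) and *RD22* (-3.37 ± 0.45, adjusted p = 3.7e-05). *EM6* is in this count but is not given as a result, as it entered the test only through genotypes in which it was high. It was listed at 0 in *brm-3 bcl7a bcl7b* and in WT, and its fitted value was -12.2 ± 1.39, a size that depends on the added 1 and is no bound. Without the averaged sample of *bcl7a bcl7b* the calls of *ABI1* (-0.85, adjusted p = 0.325), *HAB2* (-1.91, adjusted p = 0.0542), *PP2CA* (-1.51, adjusted p = 0.128), *HAI1* (-1.32, adjusted p = 0.235), *ABF2* (-1.60, adjusted p = 0.113) and *RAB18* (-1.53, adjusted p = 0.218) were lost, and *PYL4* was 1.3 and stayed called (adjusted p = 0.0475). Without *bcl7a bcl7b* replicate 2 *ABI1* (-3.22), *PP2CA* (-4.68), *HAI1* (-5.08), *RAB18* (-4.75) and *PYL4* (4.08) were larger by over 1.5 times. *ABI1* also lost its call without *brm-3* replicate 2 or replicate 2 or 3 of *brm-3 bcl7a bcl7b* (adjusted p of 0.053 to 0.0719), and *HAI1* without *brm-3* replicate 3 (adjusted p = 0.0563).

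The effect of losing both genes differed from the sum of the effects in *bcl7a* and *bcl7b* for *PYL8* (1.47 ± 0.36, adjusted p = 0.0183) and *RD22* (1.82 ± 0.45, adjusted p = 0.0181), 5.13% of the ABA genes (background 6.01%). All of these tests use the 2 samples of *bcl7a bcl7b* and the WT libraries, and no explanation was tested.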

How the results depend on the processing

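With libraries rescaled to the same total, the ABA genes called against WT numbered 26 in *bcl7a bcl7b* (background 51.9%) and 5 in *bcl7b* (background 3.53%, and 4 genes without the 100 highest genes). After the same rescaling the other ABA pathway genes called in *bcl7a bcl7b* numbered 15 (background 51.9%). Then 26 ABA genes passed the interaction with *brm-3* (background 33.9%) and 7 the non-additivity test (background 15.3%). With the compared genotypes alone in the fit, 20 ABA genes were called in *brm-3 bcl7a bcl7b* against *brm-3* (background 21.5%) and 26 in *brm-1 bcl7a bcl7b* against *brm-1* (39.2%). There were 23 in *brm-1* against *brm-3* (16.6%) and 1 in *bcl7a bcl7b* against WT (3.59%). In that fit 7 passed the interaction with *brm-3* (5.83%) and 0 the non-additivity test (2.04%), and 1 other ABA pathway gene was called in *bcl7a bcl7b* (3.59%) and 2 in *bcl7b* (0.607%). A pseudocount of 5 gave 5 genes in the non-additivity test. With all 24 libraries as deposited, 23 genes passed the interaction with *brm-3*. The share of all genes called was not computed for the pseudocounts, the scaling without the 100 highest genes, all 24 libraries or the replicate block.

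Libraries with the same replicate number varied together weakly at most. Deviations from the genotype mean correlated at -0.07 to 0.12 (median 0.0047) over 84 pairs with the same number, 1 pair was over 0.1, and 13 of 24 libraries correlated best with their own number. With a replicate block and all 24 libraries, 22 genes passed the interaction with *brm-3* and 14 other ABA pathway genes were called in *bcl7a bcl7b*.

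Directions turned for *ABF4* in *brm-3 bcl7a bcl7b* against WT (0.21 after rescaling to the same total) and for *ABI5* in *brm-1* against *bcl7a bcl7b* (0.26 as reported, -0.00068 with all 24 libraries, with or without the block). *ABI5* ranged from -0.53 to 1.06 there when 1 library was left out, from -0.63 to 0.43 in *bcl7a* against WT (0.18 without *bcl7a* replicate 2) and from -1.39 to 0.041 in *bcl7b* against WT. None of these *ABI5* values was called.

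With 1 library left out at a time, the ABA genes called against WT numbered 0 to 1 in *bcl7a*, 2 to 6 in *bcl7b*, 7 to 21 in *bcl7a bcl7b*, 16 to 20 in *brm-3*, 19 to 22 in *brm-1*, 20 to 23 in *brm-3 bcl7a bcl7b* and 16 to 19 in *brm-1 bcl7a bcl7b*. Counts were 9 to 10 in *brm-3 bcl7a bcl7b* against *brm-3*, 11 to 14 in *brm-1 bcl7a bcl7b* against *brm-1*, 7 to 9 in *brm-1* against *brm-3* and 10 to 20 in *brm-1* against *bcl7a bcl7b*. They were 10 to 17 and 8 to 23 for the interactions with *brm-1* and *brm-3*, and 1 to 11 for non-additivity. Other ABA pathway genes numbered 0 to 1 in *bcl7a*, 1 to 5 in *bcl7b* and 6 to 10 in *bcl7a bcl7b*. Where *bcl7a bcl7b* was left with 1 sample, its spread was taken from the other genotypes. The share of all genes called was computed only for fits without a sample of *bcl7a bcl7b*, so most of these counts have no background to be set against. Of 182 calls for single genes, 112 held in every such fit, 4 were lost in every one and 0 turned direction. The cause of these changes was not tested, beyond the fewer samples and genes that each alternative uses by construction.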

Other observations

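Outside the rule for named genes, and chosen after its values were seen, *BGLU18*, which encodes a glucosidase that frees ABA from its stored glucose ester, stood apart in 1 genotype. *BGLU18* held 36024, 47557 and 29790.0 in *brm-1 bcl7a bcl7b* against 425, 397 and 622 in *brm-1*, and 659, 1335 and 3139 in *brm-3 bcl7a bcl7b* against 239, 127 and 203 in *brm-3*. The counts of *BGLU18* were 373, 277 and 373 in *bcl7a bcl7b*, 85.2, 97.3 and 112 in *bcl7b*, 110, 138 and 185 in *bcl7a*, and 170, 114 and 271 in WT. All *brm-1 bcl7a bcl7b* libraries were thus above every library of the other genotypes. *LTP4* was also highest in that genotype, with 3567, 7788 and 5440.4 in *brm-1 bcl7a bcl7b* and 490, 567 and 465 in *brm-3 bcl7a bcl7b*, against 0, 6.33 and 0 in WT.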
